A study of Homo sapiens with 36 samples.

Results

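The genes described here are 49 components of the B-cell receptor signalling pathway, taken by gene symbol from the 37549 named rows of a table of gene counts. They were listed for their place in the pathway, with earlier results of these data known. The counts came from 36 RNA sequencing libraries of the established B-lymphoid leukaemia lines MEC1, JVM2 and EHEB, 12 libraries a line. MEC1 carries mutated p53, and JVM2 and EHEB carry wild-type p53. Each line was treated with the DMSO vehicle, with 50 µM fludarabine (a purine analogue that stops DNA synthesis), with 5 µM ibrutinib (an inhibitor of the kinase BTK) or with 10 µM idelalisib (an inhibitor of the delta form of PI3-kinase). Each group had 3 libraries, made from rRNA-depleted total RNA. Exposure lasted 48 h for MEC1, 72 h for JVM2 and 96 h for EHEB per the study's methods, so a line cannot be told apart from its exposure time. The labels state triplicate treatment but not separate cultures, and the p-values measure the spread between these libraries, which may be technical. The DMSO and fludarabine libraries carry numbers of one series and the ibrutinib and idelalisib libraries those of a later one, with no DMSO library in the later series. Below, a single library is named by its treatment and number (DMSO-37). A kinase inhibitor's difference from DMSO and a difference between the series therefore cannot be told apart, whereas fludarabine against DMSO and idelalisib against ibrutinib each stay within a series.

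When antigen binds the surface immunoglobulin of a B cell, SRC-family kinases phosphorylate the CD79A and CD79B chains, and SYK docks on them. SYK then works through the scaffold BLNK and the kinase BTK to activate the phospholipase PLCG2, whose products release calcium and switch on protein kinase C, RAS, NFAT and NF-kB. CD22, FCGR2B and related receptors recruit phosphatases that quench the signal, and leukaemic B cells of chronic lymphocytic leukaemia depend on the pathway, which is why BTK and PI3-kinase are drug targets. The members fell into 10 roles: 4 signalling chains and coreceptor members, 7 inhibitory and Fc receptor-like receptors, 6 SYK, SRC-family and CSK kinases, 3 TEC-family kinases, 8 adaptors and exchange factors, 4 phospholipase C and protein kinase C enzymes, 5 phosphatases, 4 members of the NF-kB and RAS branches, 6 members of the calcium and NFAT branch and 2 CBL ubiquitin ligases.

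The members that rose with both kinase inhibitors in all 3 lines, described further on, are FCGR2B, BLK, RASGRP3 and ITPR1. The 250 bases before the RefSeq transcription start are printed for FCGR2B, RASGRP3 and ITPR1, which share these calls. They are also printed for BTK, the target of ibrutinib. With fludarabine RASGRP3 and ITPR1 were lower in all 3 lines, and FCGR2B was not called lower in any. The table of promoters used here held 42 of the 49 members. Sequences are of GRCh38.p14, run 5′ to 3′ on the gene's own strand and end just before the start. Capitals mark a match, on either strand, to 1 of 5 motifs.
FCGR2B, chr1:161646993-161647242, plus strand: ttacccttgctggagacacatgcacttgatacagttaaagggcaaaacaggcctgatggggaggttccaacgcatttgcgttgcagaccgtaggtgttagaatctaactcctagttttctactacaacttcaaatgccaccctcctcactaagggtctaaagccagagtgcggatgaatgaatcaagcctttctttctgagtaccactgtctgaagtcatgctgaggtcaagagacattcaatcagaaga
RASGRP3, chr2:33436098-33436347, plus strand: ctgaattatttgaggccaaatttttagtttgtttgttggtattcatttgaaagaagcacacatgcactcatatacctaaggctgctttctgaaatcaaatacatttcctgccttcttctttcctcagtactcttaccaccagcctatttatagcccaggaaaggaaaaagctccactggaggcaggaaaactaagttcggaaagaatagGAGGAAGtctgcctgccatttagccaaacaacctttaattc
ITPR1, chr3:4493098-4493347, plus strand: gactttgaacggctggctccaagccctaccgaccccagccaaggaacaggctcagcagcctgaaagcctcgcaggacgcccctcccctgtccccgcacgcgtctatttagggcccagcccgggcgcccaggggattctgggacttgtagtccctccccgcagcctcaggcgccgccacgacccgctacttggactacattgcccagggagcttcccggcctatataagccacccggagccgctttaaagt
BTK, chrX:101390797-101391046, minus strand: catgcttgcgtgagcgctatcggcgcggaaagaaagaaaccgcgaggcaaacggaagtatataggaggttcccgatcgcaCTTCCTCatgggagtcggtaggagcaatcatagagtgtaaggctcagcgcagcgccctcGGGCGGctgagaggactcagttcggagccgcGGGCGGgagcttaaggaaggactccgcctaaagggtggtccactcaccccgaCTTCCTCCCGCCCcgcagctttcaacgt
The motifs searched were the octamer ATGCAAAT bound by OCT factors of B cells, the FOXO motif GTAAACA, the GC box GGGCGG, the ETS motif GAGGAAG and the E-box CAGGTG. RASGRP3 held 1 ETS match, 41 bases before the start. BTK held 2 ETS matches, at 170 and 28 bases, and 3 GC boxes, at 111, 80 and 21 bases, of which the last overlaps the ETS match at 28. FCGR2B and ITPR1 held none of the 5. The FCGR2B window ends at base 161647242, whereas the Ensembl gene starts further downstream, at base 161663143. The sequence before that Ensembl start was not searched, and which start these lines use was not tested. The absence of a match for FCGR2B therefore holds for the printed RefSeq window only. Among all 27305 windows of this length, 11% held the ETS motif, against 12 of the 42 members (28.6%). The GC box was in 42.3% of all windows and 22 members (52.4%), the E-box in 17.5% and 12 members (28.6%), the octamer in 1.66% and 2 members (4.76%), and the FOXO motif in 2.98% and 0 members. A match is a run of letters and not a measured binding site.

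The total count per library ran from 26590705 to 53538925 (median 42114145). All 6 B-cell markers fixed for the check, among them MS4A1, PAX5, CD37, CD74 and POU2AF1, were at 1 CPM or more in every library, with a summed level of 2116 to 7162 CPM. Of the 5 T-cell markers, CD3D and CD3G were under 1 CPM in every library (summed level of the list 0 to 16.8 CPM), as were 3 of the 5 myeloid markers (CD14, MPO and LYZ; 6.81 to 63.8 CPM) and all 4 erythroid markers (0 to 0.529 CPM). The other way, 2 of the 5 T-cell markers were at 1 CPM or more in every EHEB library. Among the 5 myeloid markers, 1 was at 1 CPM or more in every library of all lines. All 4 plasma-cell markers were at 1 CPM or more throughout, with a summed level of 254 to 767 CPM. Because the RNA came from whole cultures, fewer cells of a kind and less RNA per cell cannot be told apart in any result.

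In what follows, CPM is the count scaled by library size and TMM within a line, and it compares libraries of 1 line. Levels of different genes or lines are given as CPM per kilobase of the canonical transcript, on a common scale of the 9 DMSO libraries, as mean ± SD of 3 libraries. A log2 fold change is followed by ± its standard error and by the Benjamini-Hochberg adjusted p of edgeR's quasi-likelihood test over all genes tested, and a gene was called at an adjusted p under 0.05. Of the 49 members, 46 passed the filter on low counts in MEC1 and in EHEB and 45 in JVM2, where FCRL3 did not. FCRL1, FCRL2 and BMX passed it nowhere. FCRL1 had 0 to 6 counts with reads in 4 of the 36 libraries, BMX 0 to 3 counts with reads in 2 libraries, and FCRL2 was at 0 in all of them. At these depths their transcripts were not detectable above a few counts.

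With DMSO alone, the signalling chain CD79A was the most abundant member in JVM2 and EHEB and the third in MEC1 after CD81 and GRB2. Its level was 103 ± 4.33 CPM per kilobase in MEC1, 259.7 ± 11.2 in JVM2 and 460.4 ± 19.4 in EHEB. The libraries of the 3 lines did not overlap, and all 3 pairs of lines differed (log2 fold change 1.34 ± 0.055, adjusted p = 7.04e-08 for JVM2 against MEC1, and 0.83 ± 0.055, adjusted p = 2.16e-06 for EHEB against JVM2). CD79B, its partner, overlaps the coding gene ENSG00000285947, and reads of the pair may be split. It ran in the other order, with 51.4 ± 1.46 CPM per kilobase in MEC1, 46.7 ± 2.76 in JVM2 and 27.2 ± 1.32 in EHEB. JVM2 and MEC1 did not differ in CD79B beyond their spread by this test (−0.14 ± 0.064, adjusted p = 0.0908), and EHEB was lower than MEC1 (−0.92 ± 0.065, adjusted p = 1.91e-06). The tetraspanin CD81 stood at 149 ± 19.2, 99.4 ± 11.5 and 167 ± 5.99 CPM per kilobase in the same order of lines. CD79B in JVM2 against MEC1 was called with library size scaling or with the stricter filter (adjusted p from 0.00284 to 0.162 over the alternatives), or without DMSO-87 (adjusted p = 0.0438), with a log2 fold change of −0.28 to −0.16.

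BTK stood at 28.9 ± 4.84 CPM per kilobase in MEC1, 27.4 ± 2.61 in JVM2 and 26.4 ± 2.48 in EHEB. The libraries of the 3 lines overlapped, and no pair was called. For BTK the log2 fold changes were −0.08 ± 0.13, adjusted p = 0.633 for JVM2 against MEC1, −0.13 ± 0.13, adjusted p = 0.415 for EHEB against MEC1 and −0.05 ± 0.13, adjusted p = 0.771 for EHEB against JVM2. The scaffold BLNK was alike in this respect, at 31.6 ± 4.11, 32.6 ± 3.08 and 27.6 ± 3.13 CPM per kilobase, with no pair called (0.05 ± 0.12, adjusted p = 0.754 for JVM2 against MEC1 and −0.19 ± 0.12, adjusted p = 0.174 for EHEB against MEC1). SYK was lowest in MEC1, at 8.38 ± 0.178, and higher in JVM2, at 13.3 ± 0.307 and in EHEB, at 16.2 ± 0.111. LYN peaked in JVM2 at 101 ± 0.906, against 33.7 ± 1.46 in MEC1 and 45.5 ± 1.45 in EHEB. PLCG2 was highest in EHEB at 60.3 ± 0.902 CPM per kilobase, against 35 ± 1.43 in MEC1 and 24.1 ± 0.822 in JVM2. For SYK, LYN and PLCG2 all pairs of lines were called. BLNK in EHEB against JVM2 was called without DMSO-134 (adjusted p = 0.0444), with a log2 fold change of −0.34. BLNK in EHEB against MEC1 was called with library size scaling (adjusted p from 0.0284 to 0.231 over the alternatives), with a log2 fold change of −0.32.

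Differences between lines of over 2 on the log2 scale were found for receptors, for members of the RAS and NFAT branches, and for PIK3AP1. PIK3AP1 was at 89.2 ± 1.5 CPM per kilobase in MEC1, 45.8 ± 0.703 in JVM2 and 13.5 ± 1.14 in EHEB. PRKCB, close to this limit, was at 15.6 ± 0.368 CPM per kilobase in MEC1 and 62.6 ± 0.623 in JVM2. CR2, the complement receptor CD21, was at 68 ± 2.5 CPM per kilobase in MEC1, 2.36 ± 0.268 in EHEB and 0.454 ± 0.0757 in JVM2 (log2 fold change −7.22 ± 0.14, adjusted p = 1.45e-09 for JVM2 against MEC1, and −4.85 ± 0.12, adjusted p = 4.4e-09 for EHEB against MEC1). RASGRP1, a RAS exchange factor, was lowest in MEC1, at 2.44 ± 0.395 against 17.4 ± 4.62 in JVM2 and 29.4 ± 8.23 in EHEB. For RASGRP1 the log2 fold changes were 2.84 ± 0.27, adjusted p = 1.77e-05 for JVM2 against MEC1 and 3.59 ± 0.28, adjusted p = 3.9e-06 for EHEB against MEC1. The transcription factor NFATC2 was lowest in JVM2, at 1.21 ± 0.0428 against 8.25 ± 0.579 in MEC1 and 12.4 ± 0.721 in EHEB. For NFATC2 the log2 fold changes were −2.77 ± 0.077, adjusted p = 7.2e-09 for JVM2 against MEC1 and 3.37 ± 0.079, adjusted p = 7.03e-09 for EHEB against JVM2. NFATC1, its relative, was lowest in EHEB, at 0.895 ± 0.0177 against 4.64 ± 0.688 in JVM2 and 7.42 ± 0.627 in MEC1 (−2.37 ± 0.12, adjusted p = 4.9e-07 for EHEB against JVM2). FCRL5 was lowest in MEC1, at 0.35 ± 0.0426, and higher in JVM2, at 2.23 ± 0.373 and in EHEB, at 3.43 ± 0.326 (3.29 ± 0.17, adjusted p = 2.12e-07 for EHEB against MEC1). FCRL3 was at 0 counts in all 3 JVM2 libraries with DMSO. Taking 3 counts per JVM2 library as the floor, the mean of EHEB was at least 63.4-fold and that of MEC1 at least 12.7-fold higher. The MEC1 mean rests on few reads, with 12, 91 and 29 counts in its DMSO libraries.

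Over the members tested, 16 of 46 were higher and 18 lower in JVM2 than in MEC1, where 33.7% of all genes tested were higher and 30.1% lower. In EHEB against MEC1, 24 were higher and 15 lower (all genes: 35.8% and 31.6%), and the median log2 difference of the members was 0.31 against 0.05 over all genes. In EHEB against JVM2, 20 were higher and 14 lower (all genes: 29.9% and 29.6%).

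**Figure D1:**
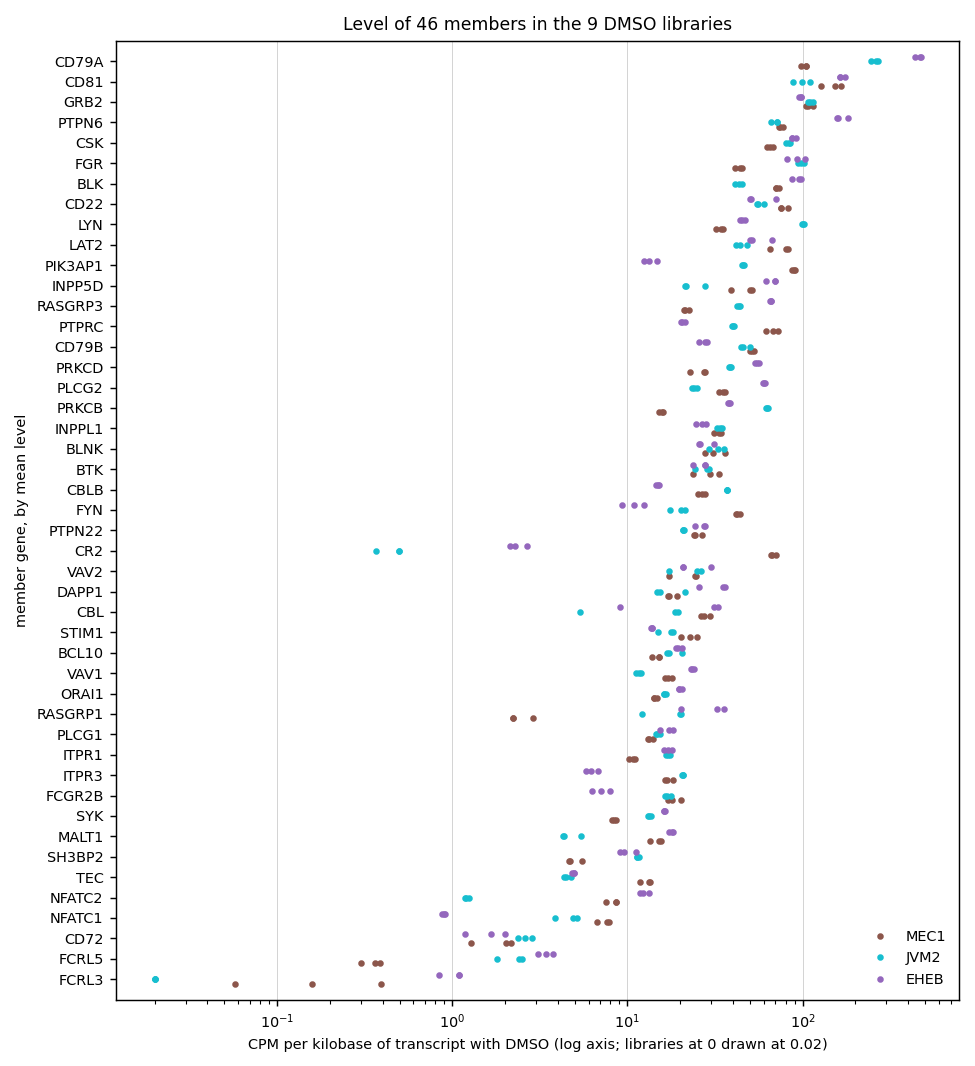
Level of the 46 members with reads in the DMSO libraries, as CPM per kilobase of canonical transcript on a log axis; each point is 1 library, coloured by line, and libraries at 0 are drawn at 0.02. BTK and BLNK show overlapping points of the 3 lines between means of 26.4 and 32.6 CPM per kilobase, whereas the CR2 points of MEC1, at a mean of 68, lie apart from those of EHEB (2.36) and JVM2 (0.454).

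With TMM scaling, more members were lower than higher with fludarabine in each line, and with library size scaling this held in JVM2 and EHEB but not in MEC1. In MEC1, 24 of 46 members were lower and 9 higher, where 22.7% of all genes tested were lower and 21.2% higher. In JVM2 the counts were 26 lower and 8 higher of 45 (all genes: 23.3% and 23.9%), and in EHEB 24 lower and 6 higher of 46 (all genes: 19.2% and 18.4%). The median log2 fold change of the members was −0.26 in MEC1, −0.37 in JVM2 and −0.45 in EHEB, against 0.06, 0.06 and 0.02 over all genes. Scaling by library size alone raised the median of all genes by 0.25, 0.20 and 0.11 in the same order of lines. The split of the members was then 19 higher and 12 lower for MEC1, 14 higher and 21 lower for JVM2 and 8 higher and 23 lower in EHEB, and the members' medians of −0.01, −0.17 and −0.35 lay below those of all genes (0.31, 0.26 and 0.13). Of all genes called, 74.1%, 69.1% and 61.8% were then higher, in the same order of lines.

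With the kinase inhibitors, MEC1 had the most members called. Ibrutinib raised 18 and lowered 17 of 46 members in MEC1 (all genes: 23.7% higher and 23.9% lower), and idelalisib raised 13 and lowered 21 (all genes: 27.6% and 27.4%). In JVM2, ibrutinib raised 12 and lowered 9 (all genes: 14.5% and 15%), and idelalisib raised 12 and lowered 14 (all genes: 21.6% and 22.6%). In EHEB, ibrutinib raised 6 and lowered 15 (all genes: 8.5% and 11.2%), and idelalisib raised 11 and lowered 15 (all genes: 15.1% and 18.2%). Median log2 fold changes of the members lay between −0.22 (idelalisib in MEC1) and 0.05 (ibrutinib in JVM2). Library size scaling moved the median of all genes by 0.10 with idelalisib in JVM2 and with both inhibitors in EHEB. It moved it by 0.07 with ibrutinib in MEC1 and in JVM2, and by −0.09 with idelalisib in MEC1. The splits in MEC1 were then 19 higher and 15 lower for ibrutinib and 12 higher and 24 lower for idelalisib. Of the called members there 55.9% and 33.3% were higher, against 56.8% and 43.6% of all genes called. The splits in JVM2 were then 16 higher and 7 lower for ibrutinib and 16 higher and 9 lower for idelalisib. Of the called members there 69.6% and 64% were higher, against 62.2% and 59.5% of all genes called. The splits in EHEB were 8 higher and 11 lower for ibrutinib and 12 higher and 12 lower for idelalisib. Of the called members there 42.1% and 50% were higher, against 65.4% and 59.6% of all genes called.

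Both inhibitors share the DMSO libraries of a line, so only each one's own values are set side by side here. In MEC1, 28 members were called in the same direction with both and 0 in opposite directions. In JVM2, 16 were called in the same direction and 1, the PI3-kinase adaptor PIK3AP1, in opposite directions. In EHEB, 18 were called in the same direction and 0 in opposite directions. Sharing the DMSO libraries favours calls in the same direction for any gene. The share of all genes called alike was not counted, so these counts do not set the members apart. The effect of a drug differed between the lines, by the F-test of the line by treatment interaction in the joint fit, for 34 of 46 members with fludarabine, 31 with ibrutinib and 35 with idelalisib, where 37.1%, 32.4% and 42.7% of all genes did.

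By role, the 6 SYK, SRC-family and CSK kinases had 4, 5 and 3 members lower and 1, 1 and 0 higher with fludarabine in MEC1, JVM2 and EHEB. Of the 8 adaptors and exchange factors, 5, 5 and 2 were lower and 2, 2 and 1 higher. The inhibitory and Fc receptor-like receptors were higher for 4 of 5 tested in MEC1, 1 of 4 in JVM2 and 0 of 5 in EHEB, and lower for 1, 2 and 3. Of all genes tested, 22.7%, 23.3% and 19.2% were lower and 21.2%, 23.9% and 18.4% higher with fludarabine in this order of lines. With idelalisib, the 5 phosphatases were lower for 4, 4 and 3 and higher for 1, 1 and 0 in the same order of lines. The 6 members of the calcium and NFAT branch were lower for 4, 2 and 1 and higher for 1, 1 and 2. Of all genes tested, 27.4%, 22.6% and 18.2% were lower and 27.6%, 21.6% and 15.1% higher with idelalisib. The other roles are not given here, and no role was tested as a set.

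**Figure D2:**
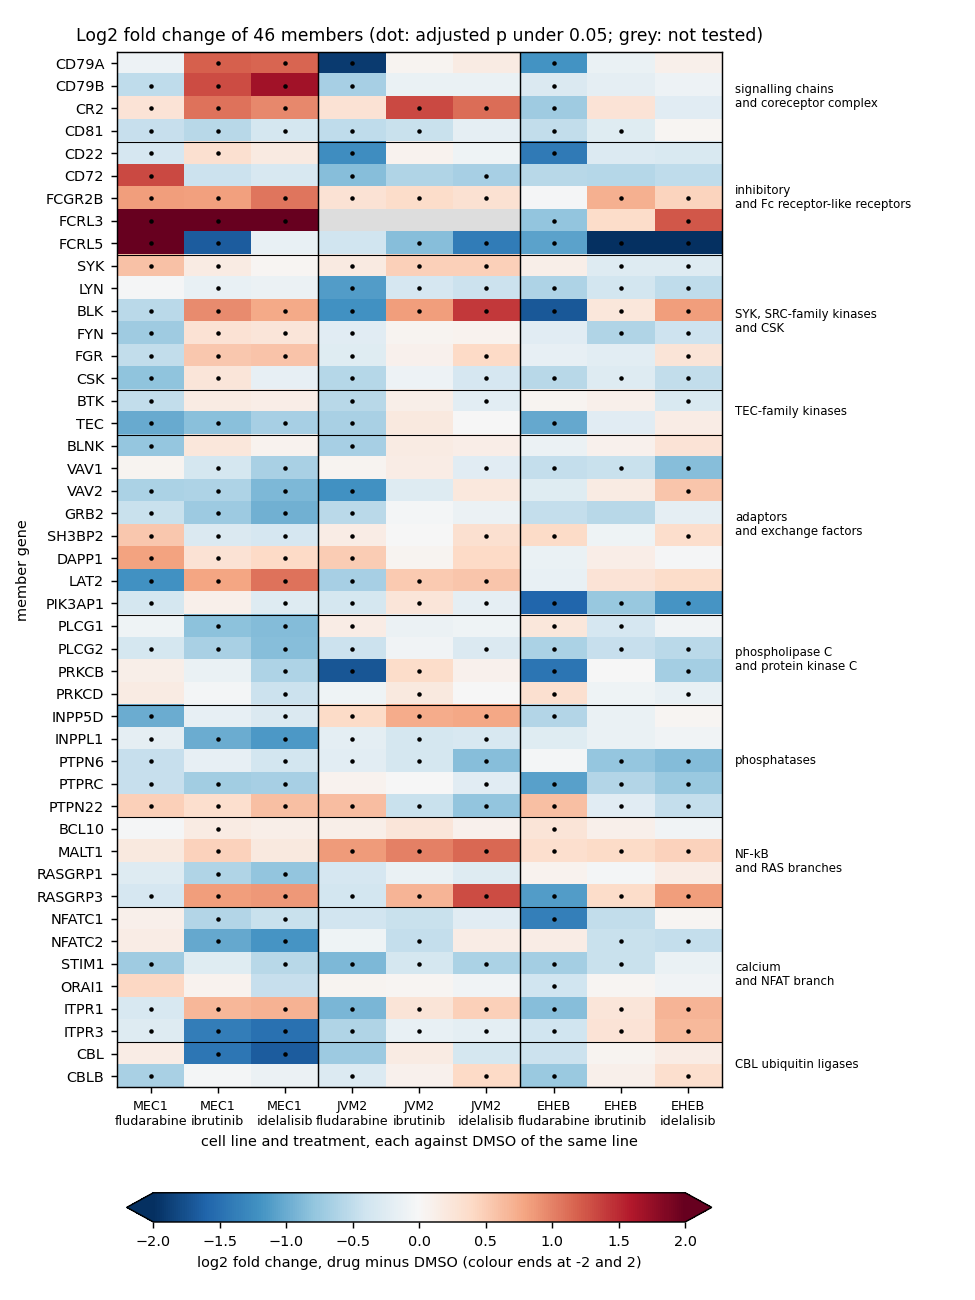
Log2 fold change of the 46 tested members (rows, by role) with each drug against DMSO in each line (columns); red is higher and blue lower with the drug, a dot marks an adjusted p under 0.05, and grey was not tested. The fludarabine columns are mostly blue, with 24, 26 and 24 members lower in MEC1, JVM2 and EHEB by TMM scaling (all genes: 22.7%, 23.3% and 19.2%). By library size scaling MEC1 had 12 lower and 19 higher, where 74.1% of all genes called were higher. The rows of BLK, RASGRP3 and ITPR1 are blue with fludarabine and red with both kinase inhibitors in every line.

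BLK, RASGRP3, ITPR1 and FCGR2B were higher with ibrutinib and with idelalisib in all 3 lines. The first 3 of these were also lower with fludarabine in all 3 lines. The drug comparisons of a line share its DMSO libraries. The share of all genes called in these ways was not counted, so the number of such members does not set them apart. BLK is a SRC-family kinase of B cells that phosphorylates the receptor chains. In JVM2 its level was 103, 93.3 and 98.5 CPM with DMSO, 43.1, 42.4 and 42.2 with fludarabine, 172, 173 and 182 with ibrutinib and 256, 275 and 257 with idelalisib. The 4 groups did not overlap in JVM2, with log2 fold changes of −1.21 ± 0.049, adjusted p = 1.05e-08 for fludarabine, 0.84 ± 0.048, adjusted p = 1.58e-06 for ibrutinib and 1.42 ± 0.049, adjusted p = 1.14e-08 for idelalisib. In MEC1 the level of BLK was 172, 173 and 179 CPM with DMSO, 127, 118 and 118 with fludarabine, 352, 319 and 341 with ibrutinib and 281.3, 319 and 285 with idelalisib. For BLK in MEC1 the log2 fold changes were −0.53 ± 0.064, adjusted p = 5.03e-05 with fludarabine, 0.95 ± 0.064, adjusted p = 7.03e-07 with ibrutinib and 0.75 ± 0.064, adjusted p = 1.98e-06 with idelalisib. In EHEB it was 199, 219 and 222 CPM with DMSO, 71.6, 64.4 and 61.4 with fludarabine, 235, 251 and 259 with ibrutinib and 374, 397 and 377 with idelalisib. For BLK in EHEB the log2 fold changes were −1.70 ± 0.069, adjusted p = 2.41e-08 with fludarabine, 0.22 ± 0.067, adjusted p = 0.0411 with ibrutinib and 0.84 ± 0.068, adjusted p = 4.02e-06 with idelalisib. Ibrutinib in EHEB gave the smallest of these rises. BLK with ibrutinib in EHEB was not called without a filter on low counts (adjusted p from 0.00409 to 0.0637 over the alternatives), or without DMSO-133 or DMSO-134 or ibrutinib-281 or ibrutinib-282 or idelalisib-287 (adjusted p from 0.0534 to 0.125).

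RASGRP3, an exchange factor that activates RAS when diacylglycerol is formed, moved in the same directions as BLK. It overlaps FAM98A on the other strand, and reads of the pair cannot be told apart without strand. In JVM2 it measured 198, 197 and 190.8 CPM with DMSO, 145, 150.02 and 157 with fludarabine, 313, 314 and 314 with ibrutinib and 462, 475 and 501 with idelalisib, again with no overlap between any of the 4 groups. For RASGRP3 in JVM2 the log2 fold changes were −0.37 ± 0.042, adjusted p = 2.98e-05 with fludarabine, 0.68 ± 0.042, adjusted p = 2.45e-06 with ibrutinib and 1.298 ± 0.043, adjusted p = 8.85e-09 with idelalisib. In EHEB the values were 297, 297 and 298 CPM with DMSO, 141, 136 and 133.5 with fludarabine, 382, 379 and 390.5 with ibrutinib and 532, 518 and 545 with idelalisib. For RASGRP3 in EHEB the log2 fold changes were −1.12 ± 0.039, adjusted p = 1.1e-08 with fludarabine, 0.37 ± 0.039, adjusted p = 8.55e-05 with ibrutinib and 0.84 ± 0.039, adjusted p = 9.87e-08 with idelalisib. The idelalisib libraries of both lines lay above the ibrutinib libraries. In MEC1, where the values were 108, 103 and 104 CPM with DMSO, 89, 81.1 and 80.6 with fludarabine, 185.5, 193 and 183 with ibrutinib and 195, 191.6 and 186.4 with idelalisib, the inhibitor groups overlapped. For RASGRP3 in MEC1 the log2 fold changes were −0.33 ± 0.055, adjusted p = 0.000541 with fludarabine, 0.83 ± 0.055, adjusted p = 6.17e-07 with ibrutinib and 0.86 ± 0.055, adjusted p = 2.71e-07 with idelalisib. RASGRP3 with fludarabine in MEC1 was not called with library size scaling (adjusted p from 4.36e-07 to 0.335 over the alternatives).

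ITPR1 encodes a receptor for inositol trisphosphate that releases calcium from the endoplasmic reticulum. Its level in MEC1 was 117, 121 and 112 CPM with DMSO, 89.6, 96.5 and 93.6 with fludarabine, 185.2, 194 and 173 with ibrutinib and 182, 198 and 186.04 with idelalisib. For ITPR1 in MEC1 the log2 fold changes were −0.32 ± 0.06, adjusted p = 0.00115 with fludarabine, 0.66 ± 0.06, adjusted p = 6.26e-06 with ibrutinib and 0.69 ± 0.061, adjusted p = 2.56e-06 with idelalisib. In JVM2 it was 170.1, 174 and 177 CPM with DMSO, 90.7, 92 and 93.2 with fludarabine, 212, 204 and 209 with ibrutinib and 244, 247 and 235 with idelalisib. For ITPR1 in JVM2 the log2 fold changes were −0.92 ± 0.037, adjusted p = 1.02e-08 with fludarabine, 0.26 ± 0.037, adjusted p = 0.000383 with ibrutinib and 0.48 ± 0.037, adjusted p = 2.26e-06 with idelalisib. The EHEB values of ITPR1 were 182, 175 and 164 CPM with DMSO, 97.8, 92.4 and 99 with fludarabine, 216, 200.1 and 202 with ibrutinib and 273, 279 and 278 with idelalisib. For ITPR1 in EHEB the log2 fold changes were −0.85 ± 0.052, adjusted p = 3.69e-07 with fludarabine, 0.25 ± 0.052, adjusted p = 0.00674 with ibrutinib and 0.67 ± 0.052, adjusted p = 2.94e-06 with idelalisib. All fludarabine libraries lay below and all inhibitor libraries above the DMSO libraries of their line. ITPR1 with fludarabine in MEC1 was not called with library size scaling (adjusted p from 1.12e-05 to 0.424 over the alternatives).

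FCGR2B, the inhibitory receptor for IgG, rose with both inhibitors, and with fludarabine in MEC1 and JVM2. In MEC1 it measured 40.3, 42.2 and 48 CPM with DMSO, 75.9, 78.9 and 77.6 with fludarabine, 78.8, 74.1 and 76.4 with ibrutinib and 92.8, 87.7 and 93.1 with idelalisib. For FCGR2B in MEC1 the log2 fold changes were 0.83 ± 0.069, adjusted p = 3.3e-06 with fludarabine, 0.81 ± 0.069, adjusted p = 3.45e-06 with ibrutinib and 1.07 ± 0.069, adjusted p = 2.96e-07 with idelalisib. The 3 drug groups all lay above DMSO in MEC1. In JVM2 the values were 35.8, 37.2 and 38.9 CPM with DMSO, 43.4, 49.3 and 43.5 with fludarabine, 50.1, 47.1 and 47.1 with ibrutinib and 47.1, 44.7 and 47 with idelalisib. For FCGR2B in JVM2 the log2 fold changes were 0.28 ± 0.063, adjusted p = 0.00355 with fludarabine, 0.37 ± 0.063, adjusted p = 0.00147 with ibrutinib and 0.31 ± 0.063, adjusted p = 0.00225 with idelalisib. The EHEB values of FCGR2B were 13.7, 15.5 and 17.5 CPM with DMSO, 16.8, 13.9 and 15.3 with fludarabine, 24.5, 28 and 23.9 with ibrutinib and 20.5, 22.5 and 20.6 with idelalisib. For FCGR2B in EHEB the log2 fold changes were −0.02 ± 0.11, adjusted p = 0.908 with fludarabine, 0.71 ± 0.11, adjusted p = 0.000989 with ibrutinib and 0.45 ± 0.11, adjusted p = 0.00838 with idelalisib. In EHEB fludarabine and DMSO overlapped. FCGR2B has near-identical relatives among the Fc receptor genes, between which reads may be split, and its counts are uncertain in that respect.

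**Figure D3:**
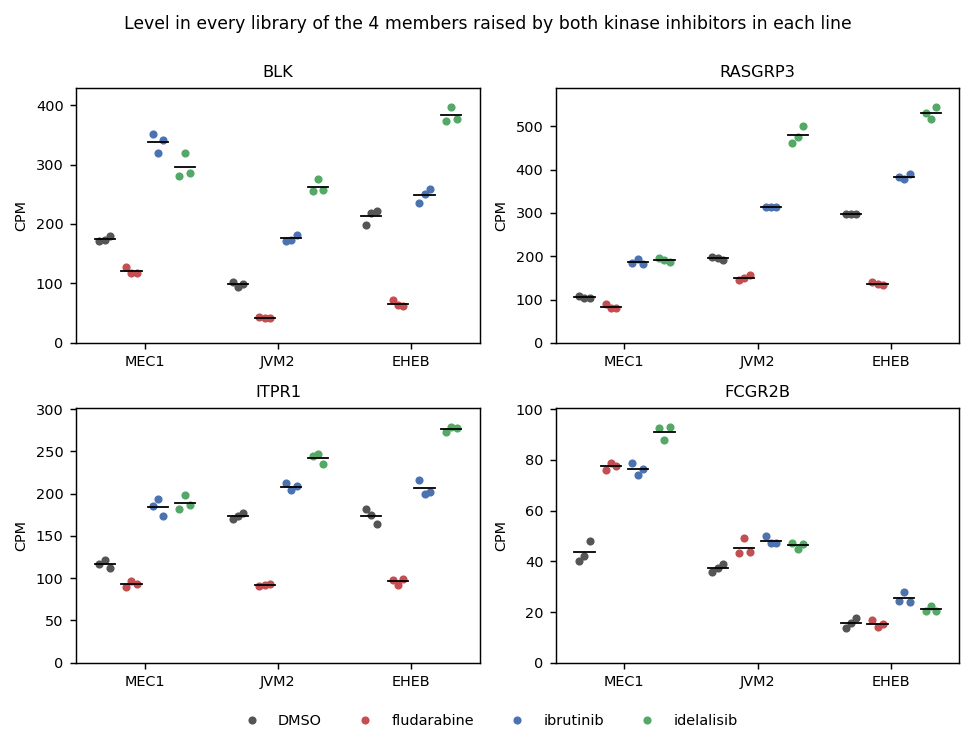
CPM of BLK, RASGRP3, ITPR1 and FCGR2B in each of the 36 libraries on linear axes from 0, by line and coloured by treatment; each point is 1 library and the bar is the mean of 3. In JVM2 and EHEB the idelalisib points of BLK (256, 275 and 257 in JVM2) and RASGRP3 (462, 475 and 501) lie above the ibrutinib points, and the fludarabine points of BLK, RASGRP3 and ITPR1 lie below DMSO in every line.

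CD79A and CD79B rose with both inhibitors in MEC1, and neither was called with either inhibitor in JVM2 or EHEB. In MEC1, CD79A measured 127, 128 and 119 CPM with DMSO, 115, 115 and 117 with fludarabine, 295, 272 and 287.6 with ibrutinib and 280.04, 265 and 296 with idelalisib. CD79B measured 70.4, 73 and 69 CPM with DMSO, 45.6, 45.7 and 57.8 with fludarabine, 178, 174 and 176 with ibrutinib and 239.1, 202 and 237.9 with idelalisib. The inhibitor libraries of both genes lay wholly above the DMSO libraries. The log2 fold changes were 1.19 ± 0.058, adjusted p = 7.82e-08 with ibrutinib and 1.17 ± 0.058, adjusted p = 6.16e-08 with idelalisib for CD79A, and 1.31 ± 0.096, adjusted p = 1.22e-06 and 1.68 ± 0.097, adjusted p = 1.5e-07 for CD79B. In JVM2, CD79A changed by 0.05 ± 0.066, adjusted p = 0.601 and by 0.16 ± 0.066, adjusted p = 0.0755, and in EHEB by −0.13 ± 0.11, adjusted p = 0.46 and by 0.10 ± 0.11, adjusted p = 0.519, none of them called. For CD79B the corresponding values in JVM2 were −0.14 and −0.14, and in EHEB −0.17 and −0.11. The effects differed between lines by the interaction test for CD79A (adjusted p = 6.04e-09 with ibrutinib and 8.98e-08 with idelalisib) and for CD79B (3.93e-10 and 2.34e-12). CD79A with idelalisib in JVM2 was called in the fit of 6 libraries or with counts divided by 8/3 or with library size scaling or with the stricter filter (adjusted p from 0.00124 to 0.162 over the alternatives), or without fludarabine-94 or fludarabine-96 (adjusted p from 0.0104 to 0.037), with a log2 fold change of 0.16 to 0.26.

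Fludarabine lowered CD79A in the lines with wild-type p53. In JVM2 its level was 279, 299 and 302 CPM with DMSO and 83.8, 79.6 and 69.1 with fludarabine, and in EHEB 536, 498 and 529 CPM with DMSO and 266, 211 and 206 with fludarabine, with no overlap in either. The log2 fold change was −1.92 ± 0.068, adjusted p = 4.28e-09 for JVM2 and −1.19 ± 0.11, adjusted p = 9.62e-06 for EHEB, against −0.11 ± 0.057, adjusted p = 0.147 for MEC1. The effect differed between lines (interaction adjusted p = 6.96e-12). With 1 line of mutated p53 at its own exposure time, p53 status cannot be told apart from line or time. CD79B fell in all 3 lines (−0.51 ± 0.095, adjusted p = 0.00114 for MEC1, −0.67 ± 0.074, adjusted p = 2.47e-05 for JVM2 and −0.29 ± 0.092, adjusted p = 0.0292 for EHEB), and its test of a difference between lines gave an adjusted p of 0.0571. CD79B with fludarabine in EHEB was not called with library size scaling (adjusted p from 0.0114 to 0.145 over the alternatives), or without DMSO-133 or DMSO-134 or fludarabine-142 or fludarabine-144 (adjusted p from 0.0657 to 0.0976).

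Of the coreceptor genes, CR2 rose with both inhibitors in MEC1, from 306, 325 and 304 CPM with DMSO to 674, 655 and 656 with ibrutinib and 627, 612 and 581 with idelalisib. For CR2 in MEC1 the log2 fold changes were 1.09 ± 0.049, adjusted p = 5.14e-08 with ibrutinib and 0.96 ± 0.049, adjusted p = 7.16e-08 with idelalisib. In JVM2 it rose at a far lower level, from 1.56, 2.13 and 2.1 CPM with DMSO to 4.47, 5.85 and 4.23 with ibrutinib and 4.01, 3.67 and 4.93 with idelalisib. For CR2 in JVM2 the log2 fold changes were 1.32 ± 0.19, adjusted p = 0.000499 with ibrutinib and 1.12 ± 0.19, adjusted p = 0.000716 with idelalisib. With fludarabine CR2 was higher in MEC1, at 374, 387 and 374 CPM (0.28 ± 0.049, adjusted p = 0.000739), and lower in EHEB, where it went from 9.69, 9.16 and 11.3 CPM with DMSO to 6.28, 6.43 and 5.82 with fludarabine (−0.70 ± 0.12, adjusted p = 0.000673), and the lines differed (interaction adjusted p = 7.25e-06). CD81 was lower with fludarabine in all 3 lines (−0.45 ± 0.11, adjusted p = 0.00491 for MEC1, −0.51 ± 0.084, adjusted p = 0.000476 for JVM2 and −0.50 ± 0.067, adjusted p = 0.000134 for EHEB) and with ibrutinib too. It measured 271, 251 and 210.4 CPM with DMSO and 181, 169.9 and 145 with ibrutinib in MEC1. It stood at 134.2, 151 and 169 CPM with DMSO and 115, 111 and 107 with ibrutinib in JVM2 and 249, 267 and 251 CPM with DMSO and 202, 203 and 241 with ibrutinib in EHEB. For CD81 with ibrutinib the log2 fold changes were −0.56 ± 0.11, adjusted p = 0.00115 for MEC1, −0.45 ± 0.084, adjusted p = 0.00245 for JVM2 and −0.24 ± 0.067, adjusted p = 0.0255 for EHEB. CD81 with fludarabine in MEC1 was not called with library size scaling (adjusted p from 0.000436 to 0.154 over the alternatives). CD81 with ibrutinib in EHEB was not called in the fit of 6 libraries or in the joint fit of 36 libraries or with library size scaling (adjusted p from 0.00492 to 0.0865 over the alternatives), or without DMSO-133 or DMSO-134 or DMSO-135 or ibrutinib-280 or ibrutinib-281 (adjusted p from 0.0546 to 0.112).

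**Figure D4:**
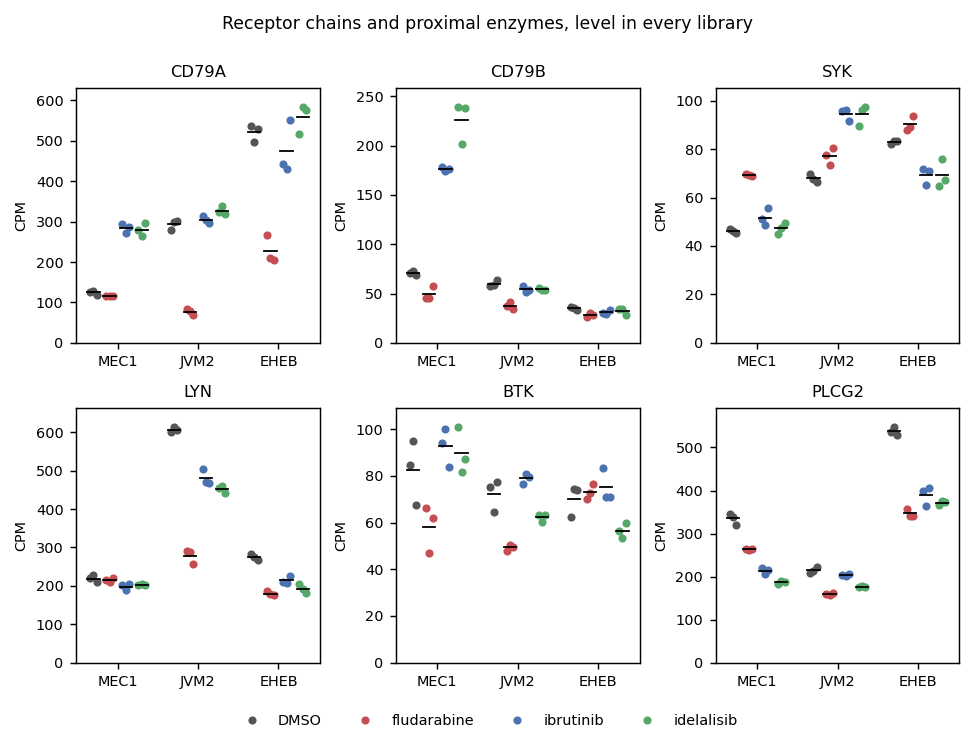
CPM of CD79A, CD79B, SYK, LYN, BTK and PLCG2 in each of the 36 libraries on linear axes from 0, by line and coloured by treatment; each point is 1 library and the bar is the mean of 3, and the CPM scale is set within each line. CD79B is at or above 174 CPM with the kinase inhibitors in MEC1 against 69 to 73 with DMSO, and CD79A falls with fludarabine in JVM2 and EHEB, whereas the BTK points of ibrutinib and DMSO overlap in every line.

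The Fc receptor-like genes FCRL3 and FCRL5 encode inhibitory receptors of B cells, and the 6 largest fold changes among the 9 drug comparisons were theirs. In MEC1, FCRL3 measured 0.292, 2.01 and 0.817 CPM with DMSO, 5.91, 4.54 and 3.11 with fludarabine, 14.2, 14.3 and 11.3 with ibrutinib and 15.5, 13.9 and 14.5 with idelalisib. All drug libraries lay above the DMSO libraries. For FCRL3 in MEC1 the log2 fold changes were 2.101 ± 0.46, adjusted p = 0.00334 with fludarabine, 3.65 ± 0.47, adjusted p = 7.19e-05 with ibrutinib and 3.79 ± 0.47, adjusted p = 3.87e-05 with idelalisib. The DMSO value rests on few reads, from 12 to 91 counts a library. In EHEB it was 4.01, 5.22 and 5.2 CPM with DMSO, 2.92, 3.38 and 2.09 with fludarabine, 7.32, 5.45 and 5.78 with ibrutinib and 12.2, 12 and 9.91 with idelalisib, lower with fludarabine (−0.78 ± 0.20, adjusted p = 0.00823) and higher with idelalisib (1.24 ± 0.19, adjusted p = 0.000458). FCRL3 was called in opposite directions with fludarabine in MEC1 and EHEB. The interaction test over all 3 lines gave an adjusted p of 0.00121, but its JVM2 part rests on almost no counts. In JVM2 a single fludarabine library held 6 counts and the other 11 libraries none. FCRL3 with fludarabine in EHEB was not called in the joint fit of 36 libraries (adjusted p from 0.00141 to 0.165 over the alternatives).

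FCRL5 in MEC1 rose with fludarabine and fell with ibrutinib, from 2.29, 1.81 and 2.17 CPM with DMSO to 29.3, 27.6 and 31 with fludarabine and 0.56, 0.738 and 0.674 with ibrutinib. For FCRL5 in MEC1 the log2 fold changes were 3.81 ± 0.20, adjusted p = 1.83e-07 with fludarabine and −1.67 ± 0.22, adjusted p = 7.69e-05 with ibrutinib. With idelalisib it was 2.37, 2.03 and 1.27 CPM, overlapping DMSO (−0.14 ± 0.20, adjusted p = 0.559). In EHEB it fell with every drug, measuring 18.9, 17.3 and 20.8 CPM with DMSO, 8.1, 8.04 and 11 with fludarabine, 3.41, 3.84 and 2.06 with ibrutinib and 1.27, 1.48 and 0.604 with idelalisib. For FCRL5 in EHEB the log2 fold changes were −1.07 ± 0.27, adjusted p = 0.00902 with fludarabine, −2.62 ± 0.29, adjusted p = 0.000114 with ibrutinib and −4.06 ± 0.32, adjusted p = 3.12e-06 with idelalisib. The order in EHEB was DMSO, fludarabine, ibrutinib and idelalisib, with no overlap between neighbours. In JVM2 FCRL5 measured 13.2, 10 and 13.8 CPM with DMSO, 7.19, 9.9 and 10.9 with fludarabine, 6.89, 8.19 and 5.52 with ibrutinib and 3.98, 4.25 and 5.78 with idelalisib, not called with fludarabine (−0.40 ± 0.21, adjusted p = 0.138) and lower with both inhibitors. For FCRL5 in JVM2 the log2 fold changes were −0.85 ± 0.21, adjusted p = 0.0113 with ibrutinib and −1.40 ± 0.21, adjusted p = 0.000331 with idelalisib. The fludarabine effect differed between lines (interaction adjusted p = 6.71e-12). FCRL5 with ibrutinib in JVM2 was not called without ibrutinib-234 (adjusted p = 0.0556).

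CD22, a lectin that recruits the phosphatase PTPN6, fell with fludarabine. In JVM2 it went from 203, 184.9 and 188 CPM with DMSO to 90.3, 80.8 and 72.3 with fludarabine and in EHEB from 171, 239.2 and 168 CPM with DMSO to 84, 60.7 and 71.3 with fludarabine. For CD22 with fludarabine the log2 fold changes were −1.24 ± 0.12, adjusted p = 6.37e-06 for JVM2 and −1.42 ± 0.15, adjusted p = 1.99e-05 for EHEB. The fall in MEC1 was smaller, from 273, 299.9 and 275 CPM with DMSO to 224, 241 and 205 with fludarabine (−0.34 ± 0.083, adjusted p = 0.00621). CD72, a C-type lectin that also carries inhibitory motifs, rose with fludarabine in MEC1, from 2.16, 3.44 and 3.69 CPM with DMSO to 7.36, 6.24 and 9.66 with fludarabine, and fell in JVM2, from 3.73, 4.5 and 4.07 CPM with DMSO to 1.5, 2.91 and 2.42 with fludarabine. For CD72 with fludarabine the log2 fold changes were 1.32 ± 0.24, adjusted p = 0.001 for MEC1 and −0.85 ± 0.23, adjusted p = 0.00944 for JVM2. The lines differed (interaction adjusted p = 4.44e-06). CD72 lies at a low level and overlaps TESK1 on the other strand, and reads of the pair cannot be told apart without strand. CD22 with fludarabine in MEC1 was not called in the joint fit of 36 libraries or with library size scaling (adjusted p from 0.000993 to 0.404 over the alternatives).

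SYK, the kinase that docks on the receptor chains, rose with fludarabine in MEC1 and with every drug in JVM2, and fell with both inhibitors in EHEB. In MEC1 it was 46.9, 46.2 and 45.3 CPM with DMSO, 69.9, 69.5 and 68.9 with fludarabine, 51, 48.6 and 55.6 with ibrutinib and 45.1, 47.4 and 49.3 with idelalisib. For SYK in MEC1 the log2 fold changes were 0.59 ± 0.063, adjusted p = 2.12e-05 with fludarabine, 0.17 ± 0.063, adjusted p = 0.0481 with ibrutinib and 0.04 ± 0.063, adjusted p = 0.652 with idelalisib. In JVM2 it was 69.7, 67.7 and 66.6 CPM with DMSO, 77.4, 73.6 and 80.3 with fludarabine, 95.7, 96 and 91.5 with ibrutinib and 89.7, 96 and 97.4 with idelalisib, with every drug library above the DMSO libraries. For SYK in JVM2 the log2 fold changes were 0.18 ± 0.051, adjusted p = 0.0123 with fludarabine, 0.47 ± 0.051, adjusted p = 6.94e-05 with ibrutinib and 0.47 ± 0.051, adjusted p = 2.64e-05 with idelalisib. In EHEB it was 82.2, 83.2 and 83.4 CPM with DMSO, 88, 89.3 and 93.7 with fludarabine, 71.7, 65 and 71 with ibrutinib and 64.9, 75.7 and 67.3 with idelalisib, below DMSO with both inhibitors. For SYK in EHEB the log2 fold changes were 0.12 ± 0.066, adjusted p = 0.17 with fludarabine, −0.26 ± 0.066, adjusted p = 0.0172 with ibrutinib and −0.26 ± 0.066, adjusted p = 0.0106 with idelalisib. The interaction adjusted p was 4.11e-05 for fludarabine, 5.65e-07 for ibrutinib and 2.28e-07 for idelalisib. SYK with ibrutinib in MEC1 was not called in the fit of 6 libraries or in the joint fit of 36 libraries or without a filter on low counts (adjusted p from 0.00219 to 0.237 over the alternatives), or without DMSO-37 or DMSO-38 or DMSO-39 or fludarabine-46 or fludarabine-47 or fludarabine-48 or ibrutinib-184 or ibrutinib-186 or idelalisib-190 or idelalisib-191 or idelalisib-192 (adjusted p from 0.0524 to 0.202), and its log2 fold change was 0.11 without ibrutinib-186. SYK with idelalisib in MEC1 was called with the stricter filter (adjusted p from 0.0223 to 0.93 over the alternatives), with a log2 fold change of 0.16. SYK with fludarabine in EHEB was called with library size scaling or with the stricter filter (adjusted p from 0.0216 to 0.482 over the alternatives), with a log2 fold change of 0.16 to 0.23. SYK with ibrutinib in EHEB was not called with library size scaling (adjusted p from 0.0021 to 0.125 over the alternatives), or without DMSO-133 or DMSO-134 or DMSO-135 or ibrutinib-281 (adjusted p from 0.0522 to 0.0831). SYK with idelalisib in EHEB was not called with library size scaling (adjusted p from 0.00252 to 0.104 over the alternatives), or without idelalisib-286 or idelalisib-288 (adjusted p from 0.0578 to 0.0602).

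LYN, the SRC-family kinase that starts both activating and inhibitory signals, fell in JVM2 and EHEB. In JVM2 it measured 601, 614 and 605 CPM with DMSO, 290.4, 289 and 257 with fludarabine, 503, 469.998 and 469 with ibrutinib and 455, 461 and 441 with idelalisib. For LYN in JVM2 the log2 fold changes were −1.12 ± 0.052, adjusted p = 2.67e-08 with fludarabine, −0.34 ± 0.051, adjusted p = 0.000679 with ibrutinib and −0.42 ± 0.051, adjusted p = 6.2e-05 with idelalisib. The EHEB values of LYN were 284, 274 and 267 CPM with DMSO, 186.2, 178 and 176 with fludarabine, 209, 208 and 225 with ibrutinib and 206, 190.8 and 182 with idelalisib. For LYN in EHEB the log2 fold changes were −0.61 ± 0.056, adjusted p = 7.81e-06 with fludarabine, −0.36 ± 0.056, adjusted p = 0.00116 with ibrutinib and −0.51 ± 0.056, adjusted p = 4.28e-05 with idelalisib. In both lines the drug libraries lay below the DMSO libraries. In MEC1, with 219.8, 228 and 209 CPM with DMSO, 216, 210.5 and 219.96 with fludarabine, 201, 189.6 and 204 with ibrutinib and 201, 204 and 202 with idelalisib, the differences were smaller. For LYN in MEC1 the log2 fold changes were −0.02 ± 0.051, adjusted p = 0.722 with fludarabine, −0.15 ± 0.051, adjusted p = 0.0335 with ibrutinib and −0.11 ± 0.051, adjusted p = 0.0757 with idelalisib. The effect differed between lines for fludarabine (interaction adjusted p = 9.37e-12) and idelalisib (0.0027), and for ibrutinib the adjusted p was 0.193 (0.0336 with library size scaling). LYN with fludarabine in MEC1 was called with library size scaling (adjusted p from 0.0111 to 1 over the alternatives), with a log2 fold change of 0.22. LYN with ibrutinib in MEC1 was not called in the fit of 6 libraries or with library size scaling or with the stricter filter (adjusted p from 0.00641 to 0.352 over the alternatives), or without DMSO-37 or DMSO-38 or ibrutinib-185 or idelalisib-190 or idelalisib-192 (adjusted p from 0.0605 to 0.113). LYN with idelalisib in MEC1 was called in the joint fit of 36 libraries or with library size scaling (adjusted p from 0.00934 to 0.896 over the alternatives), or without DMSO-39 or ibrutinib-184 (adjusted p from 0.0391 to 0.0422), with a log2 fold change of −0.21 to −0.15.

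FYN, another SRC-family kinase, was higher with both inhibitors in MEC1, where it went from 177, 171 and 169 CPM with DMSO to 214, 205 and 211 with ibrutinib and 206, 202 and 204 with idelalisib. For FYN in MEC1 the log2 fold changes were 0.29 ± 0.052, adjusted p = 0.000836 with ibrutinib and 0.24 ± 0.052, adjusted p = 0.00194 with idelalisib. In EHEB it was lower with both, from 34.9, 41 and 46.3 CPM with DMSO to 28.8, 24.3 and 27.3 with ibrutinib and 28.3, 33.8 and 29.4 with idelalisib (−0.60 ± 0.11, adjusted p = 0.0027 with ibrutinib and −0.42 ± 0.11, adjusted p = 0.0119 with idelalisib), and the lines differed (interaction adjusted p = 2.86e-06 and 0.000211). FGR was higher with idelalisib in all 3 lines. For FGR with idelalisib the log2 fold changes were 0.58 ± 0.058, adjusted p = 7.98e-06 for MEC1, 0.40 ± 0.048, adjusted p = 5.71e-05 for JVM2 and 0.26 ± 0.086, adjusted p = 0.0393 for EHEB. CSK, which switches SRC-family kinases off, was lower with fludarabine in all 3 lines, from 204, 191.6 and 198 CPM with DMSO to 119.9, 112 and 108 with fludarabine in MEC1. The JVM2 values of CSK went from 238.3, 228 and 234.3 CPM with DMSO to 163, 161 and 149.9 with fludarabine and the EHEB values from 247, 259 and 245 CPM with DMSO to 185.01, 162 and 165 with fludarabine. For CSK with fludarabine the log2 fold changes were −0.80 ± 0.072, adjusted p = 5.83e-06 for MEC1, −0.56 ± 0.055, adjusted p = 9.78e-06 for JVM2 and −0.55 ± 0.063, adjusted p = 4.11e-05 for EHEB. With ibrutinib its calls had opposite directions, at 250.3, 209 and 244 CPM in MEC1 and 199.999, 204 and 226 CPM in EHEB (0.25 ± 0.071, adjusted p = 0.0142 for MEC1, −0.25 ± 0.063, adjusted p = 0.0168 for EHEB and interaction adjusted p = 0.00175). FYN with idelalisib in MEC1 was not called in the joint fit of 36 libraries or with library size scaling (adjusted p from 1.19e-05 to 0.069 over the alternatives). FYN with idelalisib in EHEB was not called without DMSO-135 or idelalisib-286 or idelalisib-288 (adjusted p from 0.0521 to 0.0576). FGR with idelalisib in EHEB was not called in the fit of 6 libraries or without a filter on low counts (adjusted p from 0.00377 to 0.109 over the alternatives), or without DMSO-133 or DMSO-134 or ibrutinib-280 or idelalisib-287 or idelalisib-288 (adjusted p from 0.0546 to 0.141). CSK with ibrutinib in MEC1 was not called without a filter on low counts (adjusted p from 0.000863 to 0.0727 over the alternatives), or without DMSO-38 or ibrutinib-184 or ibrutinib-186 (adjusted p from 0.0532 to 0.0953). CSK with ibrutinib in EHEB was not called with library size scaling (adjusted p from 0.00176 to 0.0515 over the alternatives), or without DMSO-134 or ibrutinib-280 or ibrutinib-281 (adjusted p from 0.0667 to 0.0727).

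BTK itself was not called with ibrutinib in any line. Its level in MEC1 was 84.5, 94.8 and 67.6 CPM with DMSO, 66.2, 46.8 and 61.8 with fludarabine, 94, 100.2 and 83.9 with ibrutinib and 101, 81.8 and 87.1 with idelalisib. The ibrutinib and DMSO libraries overlapped in all 3 lines. For BTK with ibrutinib the log2 fold changes were 0.17 ± 0.15, adjusted p = 0.368 for MEC1, 0.12 ± 0.065, adjusted p = 0.187 for JVM2 and 0.10 ± 0.087, adjusted p = 0.481 for EHEB. In JVM2 BTK measured 75.3, 64.7 and 77.2 CPM with DMSO, 47.8, 50.6 and 49.6 with fludarabine, 76.5, 80.8 and 79.5 with ibrutinib and 63.1, 60.4 and 63.1 with idelalisib, and it was lower with fludarabine (−0.55 ± 0.066, adjusted p = 4.19e-05) and with idelalisib (−0.22 ± 0.065, adjusted p = 0.019). In EHEB it measured 62.4, 74.2 and 73.8 CPM with DMSO, 70.3, 72.6 and 76.5 with fludarabine, 83.3, 71.1 and 70.9 with ibrutinib and 56.3, 53.4 and 60 with idelalisib, lower with idelalisib (−0.31 ± 0.088, adjusted p = 0.0185) and not called with fludarabine (0.06 ± 0.087, adjusted p = 0.637). In MEC1 it was lower with fludarabine (−0.50 ± 0.15, adjusted p = 0.0187) and not called with idelalisib (0.13 ± 0.15, adjusted p = 0.491). The fludarabine effect differed between lines (interaction adjusted p = 0.0047), and the adjusted p was 1 for ibrutinib and 0.132 for idelalisib. TEC, its relative, fell with fludarabine in all 3 lines (−1.01 ± 0.095, adjusted p = 8.3e-06 for MEC1, −0.65 ± 0.073, adjusted p = 2.88e-05 for JVM2 and −1.02 ± 0.14, adjusted p = 0.00013 for EHEB) and with both inhibitors in MEC1. For TEC in MEC1 the log2 fold changes were −0.84 ± 0.094, adjusted p = 2.66e-05 with ibrutinib and −0.66 ± 0.094, adjusted p = 0.000107 with idelalisib. BTK with idelalisib in JVM2 was not called in the fit of 6 libraries or in the joint fit of 36 libraries or with library size scaling (adjusted p from 0.00825 to 0.203 over the alternatives), or without DMSO-85 or DMSO-87 or idelalisib-238 or idelalisib-239 (adjusted p from 0.0501 to 0.0827). BTK with idelalisib in EHEB was not called with library size scaling (adjusted p from 0.00738 to 0.118 over the alternatives), or without DMSO-134 or DMSO-135 or idelalisib-286 or idelalisib-287 (adjusted p from 0.0608 to 0.0881). BTK with fludarabine in MEC1 was not called with library size scaling (adjusted p from 0.00121 to 0.198 over the alternatives), or without DMSO-38 or fludarabine-47 (adjusted p from 0.0664 to 0.0743).

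BLNK, the scaffold between SYK and BTK, fell with fludarabine in MEC1 and JVM2. In MEC1 it went from 173, 148 and 134.6 CPM with DMSO to 82.7, 83.7 and 100.2 with fludarabine and in JVM2 from 131, 148 and 158 CPM with DMSO to 89.9, 97.5 and 89.6 with fludarabine. For BLNK with fludarabine the log2 fold changes were −0.77 ± 0.11, adjusted p = 0.0002 for MEC1 and −0.66 ± 0.12, adjusted p = 0.00119 for JVM2. In EHEB fludarabine and DMSO overlapped, at 109, 103 and 128 against 115, 140.3 and 116 CPM (−0.12 ± 0.13, adjusted p = 0.5), and the interaction adjusted p was 0.016 (0.0509 with library size scaling). BLNK was not called with either inhibitor in any line, with log2 fold changes from 0.07 (idelalisib in MEC1) to 0.28 (idelalisib in EHEB). BLNK overlaps ZNF518A, from which reads cannot be told apart without strand. BLNK with ibrutinib in MEC1 was called with library size scaling or with the stricter filter (adjusted p from 0.0327 to 0.277 over the alternatives), or without DMSO-37 or ibrutinib-184 (adjusted p from 0.0386 to 0.0474), with a log2 fold change of 0.30 to 0.33. BLNK with ibrutinib in JVM2 was called without ibrutinib-234 (adjusted p = 0.0377), with a log2 fold change of 0.32. BLNK with idelalisib in EHEB was called without idelalisib-287 (adjusted p = 0.038), with a log2 fold change of 0.39.

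PIK3AP1, the adaptor that brings PI3-kinase to the receptor complex, fell most in EHEB. There it measured 72.9, 65.8 and 61.9 CPM with DMSO, 23, 22.8 and 20.9 with fludarabine, 37.6, 40.6 and 40.5 with ibrutinib and 29.2, 32.4 and 27.4 with idelalisib, with every drug group below DMSO. For PIK3AP1 in EHEB the log2 fold changes were −1.59 ± 0.085, adjusted p = 1.42e-07 with fludarabine, −0.76 ± 0.083, adjusted p = 0.000116 with ibrutinib and −1.17 ± 0.084, adjusted p = 1.79e-06 with idelalisib. In JVM2, with 229, 227 and 221 CPM with DMSO, 176, 181 and 173 with fludarabine, 279, 260.3 and 265 with ibrutinib and 205, 199 and 193 with idelalisib, ibrutinib raised it and idelalisib lowered it. For PIK3AP1 in JVM2 the log2 fold changes were −0.35 ± 0.041, adjusted p = 3.26e-05 with fludarabine, 0.25 ± 0.041, adjusted p = 0.00108 with ibrutinib and −0.18 ± 0.041, adjusted p = 0.00384 with idelalisib. The ibrutinib effect differed between lines (interaction adjusted p = 3.44e-09). VAV1, a guanine nucleotide exchange factor, was lower with idelalisib in all 3 lines. It went from 57.2, 54.3 and 52.6 CPM with DMSO to 34.7, 37 and 33 with idelalisib in MEC1. The JVM2 values of VAV1 went from 35.4, 34.9 and 33.1 CPM with DMSO to 30, 28.4 and 29.9 with idelalisib and the EHEB values from 71.2, 69.2 and 69.3 CPM with DMSO to 38.1, 40 and 38.5 with idelalisib. For VAV1 with idelalisib the log2 fold changes were −0.65 ± 0.084, adjusted p = 5.51e-05 for MEC1, −0.23 ± 0.052, adjusted p = 0.00449 for JVM2 and −0.85 ± 0.062, adjusted p = 2.08e-06 for EHEB. PIK3AP1 with idelalisib in JVM2 was not called with library size scaling (adjusted p from 0.000175 to 0.143 over the alternatives). VAV1 with idelalisib in JVM2 was not called with library size scaling (adjusted p from 0.000622 to 0.124 over the alternatives).

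VAV2, of the same family, was lower with idelalisib in MEC1, from 129, 93.2 and 132 CPM with DMSO to 68.1, 49.7 and 71.8 with idelalisib, and higher in EHEB, from 103, 104 and 151 CPM with DMSO to 206, 161 and 158 with idelalisib (−0.90 ± 0.17, adjusted p = 0.00108 for MEC1, 0.55 ± 0.14, adjusted p = 0.0118 for EHEB and interaction adjusted p = 7.58e-06). SH3BP2, an adaptor of SYK and PLCG2, was lower with idelalisib in MEC1, at 37.7, 42.5 and 36.6 CPM against 46, 54.8 and 46.9 with DMSO, and higher in JVM2 (136, 133.98 and 124 against 107, 105 and 105) and EHEB (117, 115 and 120.4 against 84.1, 89.2 and 104). The log2 fold changes lay on both sides of 0 (−0.34 ± 0.091, adjusted p = 0.00784 for MEC1, 0.31 ± 0.044, adjusted p = 0.000191 for JVM2, 0.35 ± 0.092, adjusted p = 0.0128 for EHEB and interaction adjusted p = 3.16e-06). With fludarabine it was higher in all 3 lines. For SH3BP2 with fludarabine the log2 fold changes were 0.55 ± 0.09, adjusted p = 0.000522 for MEC1, 0.14 ± 0.044, adjusted p = 0.0209 for JVM2 and 0.38 ± 0.092, adjusted p = 0.00677 for EHEB. DAPP1, an adaptor that binds the lipid product of PI3-kinase, was higher with fludarabine in MEC1 and JVM2. For DAPP1 with fludarabine the log2 fold changes were 0.81 ± 0.10, adjusted p = 7.12e-05 for MEC1 and 0.50 ± 0.16, adjusted p = 0.027 for JVM2. LAT2, a transmembrane adaptor, was lower with fludarabine and higher with both inhibitors in MEC1, where it measured 178, 173 and 141 CPM with DMSO, 79.8, 62.9 and 69.2 with fludarabine, 241, 354 and 250.4 with ibrutinib and 358, 328 and 360.2 with idelalisib. For LAT2 in MEC1 the log2 fold changes were −1.21 ± 0.15, adjusted p = 5.97e-05 with fludarabine, 0.78 ± 0.15, adjusted p = 0.00105 with ibrutinib and 1.09 ± 0.15, adjusted p = 7.42e-05 with idelalisib. JVM2 gave the same 3 directions (−0.66 ± 0.13, adjusted p = 0.00146 with fludarabine, 0.52 ± 0.13, adjusted p = 0.0103 with ibrutinib and 0.55 ± 0.13, adjusted p = 0.00502 with idelalisib), and in EHEB LAT2 was not called with any drug. GRB2 was lower with both inhibitors in MEC1 (−0.72 ± 0.072, adjusted p = 1.14e-05 with ibrutinib and −0.96 ± 0.073, adjusted p = 9.01e-07 with idelalisib) and was called with neither in the other lines. VAV2 with idelalisib in EHEB was not called in the fit of 6 libraries (adjusted p from 0.00104 to 0.0512 over the alternatives). SH3BP2 with fludarabine in JVM2 was not called in the joint fit of 36 libraries (adjusted p from 0.000277 to 0.222 over the alternatives), or without DMSO-86 or DMSO-87 or fludarabine-96 (adjusted p from 0.0567 to 0.0597). DAPP1 with fludarabine in JVM2 was not called in the fit of 6 libraries (adjusted p from 0.00311 to 0.0625 over the alternatives), or without DMSO-85 or DMSO-87 or fludarabine-94 or fludarabine-95 (adjusted p from 0.0814 to 0.1). LAT2 with idelalisib in EHEB was called in the fit of 6 libraries or with DESeq2 or with library size scaling or with the stricter filter (adjusted p from 0.0341 to 0.0957 over the alternatives), or without DMSO-135 or ibrutinib-280 (adjusted p from 0.0213 to 0.0424), with a log2 fold change of 0.37 to 0.53. GRB2 with ibrutinib in EHEB was called with DESeq2 or in the joint fit of 36 libraries (adjusted p from 0.013 to 0.221 over the alternatives), or without ibrutinib-281 (adjusted p = 0.0197), with a log2 fold change of −0.56 to −0.25. GRB2 with idelalisib in EHEB was called in the fit of 6 libraries (adjusted p from 0.0354 to 0.806 over the alternatives), or without ibrutinib-281 (adjusted p = 0.0347), with a log2 fold change of −0.18 to −0.17.

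PLCG2, the phospholipase that BTK activates, fell with fludarabine and idelalisib in all 3 lines and with ibrutinib in MEC1 and EHEB. In MEC1 it measured 346, 339 and 321 CPM with DMSO, 265, 261 and 264 with fludarabine, 219.97, 206 and 215 with ibrutinib and 182, 190.7 and 187 with idelalisib. For PLCG2 in MEC1 the log2 fold changes were −0.35 ± 0.049, adjusted p = 0.000165 with fludarabine, −0.65 ± 0.049, adjusted p = 1.47e-06 with ibrutinib and −0.84 ± 0.049, adjusted p = 1.51e-07 with idelalisib. In JVM2 it measured 209, 213 and 223 CPM with DMSO, 159, 158 and 161 with fludarabine, 203, 202 and 206 with ibrutinib and 176, 178 and 176 with idelalisib. For PLCG2 in JVM2 the log2 fold changes were −0.43 ± 0.036, adjusted p = 2.59e-06 with fludarabine, −0.08 ± 0.035, adjusted p = 0.143 with ibrutinib and −0.28 ± 0.036, adjusted p = 8.61e-05 with idelalisib. The EHEB values of PLCG2 were 535, 548 and 529.9 CPM with DMSO, 358, 341 and 341 with fludarabine, 399, 363 and 406 with ibrutinib and 366, 375 and 374 with idelalisib. For PLCG2 in EHEB the log2 fold changes were −0.63 ± 0.047, adjusted p = 1.47e-06 with fludarabine, −0.47 ± 0.047, adjusted p = 6.6e-05 with ibrutinib and −0.53 ± 0.047, adjusted p = 8.49e-06 with idelalisib. Every drug group lay below DMSO in all 3 lines. The effects differed between lines (interaction adjusted p = 0.000374 for fludarabine, 2.25e-08 for ibrutinib and 9.28e-09 for idelalisib). PLCG1 was lower with both inhibitors in MEC1. For PLCG1 in MEC1 the log2 fold changes were −0.82 ± 0.055, adjusted p = 7.03e-07 with ibrutinib and −0.87 ± 0.055, adjusted p = 2.67e-07 with idelalisib. It overlaps ZHX3 on the other strand. PLCG2 with fludarabine in MEC1 was not called with library size scaling (adjusted p from 2.02e-10 to 0.2 over the alternatives).

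PRKCB, the protein kinase C isoform that carries the signal to NF-kB, fell with fludarabine in JVM2 and EHEB. In JVM2 it went from 516, 521 and 508 CPM with DMSO to 156, 162 and 155 with fludarabine and in EHEB from 317, 316 and 311 CPM with DMSO to 125, 111 and 106 with fludarabine. For PRKCB with fludarabine the log2 fold changes were −1.71 ± 0.041, adjusted p = 2.81e-10 for JVM2 and −1.46 ± 0.068, adjusted p = 5.65e-08 for EHEB. In MEC1, at 138, 141.8 and 135.5 CPM with DMSO and 151, 141.8 and 158 with fludarabine, the groups overlapped (0.12 ± 0.067, adjusted p = 0.191). PRKCB was also lower with idelalisib in MEC1 and EHEB (−0.61 ± 0.068, adjusted p = 1.6e-05 for MEC1 and −0.69 ± 0.067, adjusted p = 1.59e-05 for EHEB) and higher with ibrutinib in JVM2 (0.36 ± 0.04, adjusted p = 8.03e-05). PRKCD, the isoform that restrains B-cell activation, was lower with idelalisib in MEC1 and EHEB (−0.43 ± 0.093, adjusted p = 0.00207 for MEC1 and −0.15 ± 0.046, adjusted p = 0.0275 for EHEB), higher with ibrutinib in JVM2 (0.20 ± 0.038, adjusted p = 0.00253) and higher with fludarabine in EHEB (0.32 ± 0.046, adjusted p = 0.000212). PRKCB with fludarabine in MEC1 was called with library size scaling or with the stricter filter (adjusted p from 0.00306 to 0.372 over the alternatives), with a log2 fold change of 0.21 to 0.36. PRKCD with idelalisib in EHEB was not called in the fit of 6 libraries or in the joint fit of 36 libraries or with library size scaling or without a filter on low counts or with the stricter filter (adjusted p from 0.0134 to 0.455 over the alternatives), or without DMSO-133 or DMSO-134 or DMSO-135 or fludarabine-142 or fludarabine-143 or fludarabine-144 or idelalisib-286 or idelalisib-288 (adjusted p from 0.0574 to 0.15).

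Among the phosphatases, PTPN6 (SHP-1), which CD22 and CD72 recruit, fell with idelalisib in all 3 lines. It went from 178, 185.8 and 175 CPM with DMSO to 148, 136 and 133.1 with idelalisib in MEC1. The JVM2 values of PTPN6 went from 159, 158 and 146 CPM with DMSO to 85.6, 88.3 and 81.7 with idelalisib and the EHEB values from 355, 353 and 405 CPM with DMSO to 195, 224 and 189.8 with idelalisib. For PTPN6 with idelalisib the log2 fold changes were −0.37 ± 0.068, adjusted p = 0.000712 for MEC1, −0.86 ± 0.067, adjusted p = 2.53e-06 for JVM2 and −0.87 ± 0.092, adjusted p = 3.21e-05 for EHEB. With ibrutinib it measured 203, 208 and 238.8 CPM in EHEB (−0.78 ± 0.092, adjusted p = 0.00019) and was also lower in JVM2 (−0.35 ± 0.067, adjusted p = 0.00255). PTPRC (CD45), which keeps SRC-family kinases ready for activation, was lower with idelalisib in all 3 lines. For PTPRC with idelalisib the log2 fold changes were −0.66 ± 0.063, adjusted p = 5.02e-06 for MEC1, −0.23 ± 0.037, adjusted p = 0.000488 for JVM2 and −0.74 ± 0.061, adjusted p = 4.84e-06 for EHEB.

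PTPN22, a phosphatase that acts on SRC-family kinases, rose with fludarabine in all 3 lines and split by line with the inhibitors. In MEC1 it measured 96.6, 106 and 95.8 CPM with DMSO, 148, 128 and 138 with fludarabine, 124, 129.6 and 125 with ibrutinib and 155, 149.5 and 149 with idelalisib, higher with each drug. For PTPN22 in MEC1 the log2 fold changes were 0.47 ± 0.064, adjusted p = 0.000124 with fludarabine, 0.34 ± 0.064, adjusted p = 0.00102 with ibrutinib and 0.60 ± 0.064, adjusted p = 1.1e-05 with idelalisib. In JVM2 it measured 76.8, 77.4 and 77.5 CPM with DMSO, 119, 121 and 114 with fludarabine, 57, 59 and 54.7 with ibrutinib and 45.2, 44.8 and 44.6 with idelalisib, higher with fludarabine and lower with both inhibitors. For PTPN22 in JVM2 the log2 fold changes were 0.61 ± 0.044, adjusted p = 8.6e-07 with fludarabine, −0.44 ± 0.044, adjusted p = 4.5e-05 with ibrutinib and −0.78 ± 0.044, adjusted p = 2.38e-07 with idelalisib. EHEB gave the same directions as JVM2, with 101, 103 and 90.2 CPM with DMSO, 141, 160.1 and 147 with fludarabine, 86.2, 82.5 and 82 with ibrutinib and 73.3, 72.1 and 65.4 with idelalisib. For PTPN22 in EHEB the log2 fold changes were 0.61 ± 0.07, adjusted p = 4.13e-05 with fludarabine, −0.23 ± 0.07, adjusted p = 0.0402 with ibrutinib and −0.48 ± 0.07, adjusted p = 0.00033 with idelalisib. The inhibitor effects differed between lines (interaction adjusted p = 1.86e-07 and 5.98e-13). PTPN22 with ibrutinib in EHEB was not called in the fit of 6 libraries or with library size scaling or without a filter on low counts (adjusted p from 0.00634 to 0.258 over the alternatives), or without DMSO-133 or DMSO-134 or fludarabine-144 or ibrutinib-280 or ibrutinib-281 or ibrutinib-282 or idelalisib-286 or idelalisib-287 (adjusted p from 0.0549 to 0.157).

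INPP5D (SHIP1), the lipid phosphatase that FCGR2B recruits, was lower with fludarabine in MEC1 and EHEB and higher in JVM2. It went from 272, 278 and 212 CPM with DMSO to 114, 134.1 and 132.9 with fludarabine in MEC1. In EHEB it went from 352, 351 and 311 CPM with DMSO to 223, 211 and 244 with fludarabine and in JVM2 from 139.6, 109 and 107 CPM with DMSO to 153, 153 and 156 with fludarabine (−0.9996 ± 0.10, adjusted p = 1.54e-05 for MEC1, −0.58 ± 0.071, adjusted p = 7.04e-05 for EHEB, 0.38 ± 0.10, adjusted p = 0.00969 for JVM2 and interaction adjusted p = 1.45e-08). In JVM2 it was higher with both inhibitors too. For INPP5D in JVM2 the log2 fold changes were 0.75 ± 0.10, adjusted p = 0.000315 with ibrutinib and 0.77 ± 0.10, adjusted p = 0.000108 with idelalisib. In MEC1 it was lower with idelalisib, at 198, 218 and 208 CPM, overlapping DMSO (log2 fold change −0.29, interaction adjusted p = 2.44e-07). That call was lost in the fit of 6 libraries (adjusted p = 0.0579), with counts divided by 8/3 (0.0506) and with the stricter filter (0.177). It was also lost without DMSO-37 or DMSO-38 or idelalisib-190 or idelalisib-192 (adjusted p from 0.0549 to 0.116). INPPL1 (SHIP2), which overlaps PHOX2A, was lower with both inhibitors in MEC1 (−0.99 ± 0.06, adjusted p = 3.48e-07 with ibrutinib and −1.15 ± 0.06, adjusted p = 8.75e-08 with idelalisib) and JVM2. For INPPL1 in JVM2 the log2 fold changes were −0.35 ± 0.066, adjusted p = 0.00263 with ibrutinib and −0.33 ± 0.066, adjusted p = 0.00203 with idelalisib.

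MALT1, the protease that links protein kinase C to NF-kB together with BCL10, rose with ibrutinib in all 3 lines. In JVM2 it measured 41.4, 40.9 and 51.5 CPM with DMSO, 76, 71.1 and 94.5 with fludarabine, 77.1, 86.8 and 106 with ibrutinib and 96.4, 93.4 and 107 with idelalisib, with every drug library above DMSO. For MALT1 in JVM2 the log2 fold changes were 0.85 ± 0.14, adjusted p = 0.000512 with fludarabine, 1.01 ± 0.14, adjusted p = 0.000417 with ibrutinib and 1.15 ± 0.14, adjusted p = 7.57e-05 with idelalisib. The rises with ibrutinib in MEC1 and EHEB were smaller (0.46 ± 0.085, adjusted p = 0.000919 for MEC1 and 0.38 ± 0.12, adjusted p = 0.0409 for EHEB), and with idelalisib it was called in EHEB (0.46 ± 0.12, adjusted p = 0.0105) and not in MEC1 (0.20 ± 0.084, adjusted p = 0.0694). BCL10 moved by 0.17 with ibrutinib and 0.12 with idelalisib in MEC1, of which the first was called, and was not called with either inhibitor in JVM2 or EHEB. RASGRP1 was lower with both inhibitors in MEC1 (−0.60 ± 0.17, adjusted p = 0.0111 with ibrutinib and −0.79 ± 0.17, adjusted p = 0.00178 with idelalisib), as was NFATC1 (−0.58 ± 0.13, adjusted p = 0.00379 with ibrutinib and −0.44 ± 0.13, adjusted p = 0.0146 with idelalisib), which also fell with fludarabine in EHEB (−1.37 ± 0.18, adjusted p = 0.000124). MALT1 with ibrutinib in EHEB was not called without a filter on low counts (adjusted p from 0.00366 to 0.0538 over the alternatives), or without DMSO-133 or DMSO-134 or DMSO-135 or fludarabine-142 or ibrutinib-280 or ibrutinib-281 or ibrutinib-282 (adjusted p from 0.0536 to 0.112). MALT1 with idelalisib in EHEB had a log2 fold change of 0.30 without idelalisib-288. MALT1 with idelalisib in MEC1 was called with counts divided by 8/3 or with the stricter filter (adjusted p from 0.00526 to 0.402 over the alternatives), or without idelalisib-191 (adjusted p = 0.00733), with a log2 fold change of 0.23 to 0.32. BCL10 with ibrutinib in MEC1 was not called in the fit of 6 libraries or in the joint fit of 36 libraries or without a filter on low counts (adjusted p from 0.00262 to 0.284 over the alternatives), or without DMSO-37 or DMSO-38 or ibrutinib-184 or ibrutinib-185 or ibrutinib-186 (adjusted p from 0.0574 to 0.125). BCL10 with idelalisib in MEC1 was called with counts divided by 8/3 or with the stricter filter (adjusted p from 0.00301 to 0.771 over the alternatives), with a log2 fold change of 0.16 to 0.24. BCL10 with ibrutinib in JVM2 was called in the joint fit of 36 libraries (adjusted p from 0.0356 to 0.205 over the alternatives), or without ibrutinib-234 (adjusted p = 0.0239), with a log2 fold change of 0.26 to 0.38. RASGRP1 with ibrutinib in MEC1 was not called without DMSO-38 (adjusted p = 0.0502). NFATC1 with idelalisib in MEC1 was not called with the stricter filter (adjusted p from 0.00453 to 0.0553 over the alternatives).

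In the calcium branch, ITPR3, which overlaps UQCC2, went against its relative ITPR1 in MEC1. Its level there was 168, 183 and 164 CPM with DMSO, 137, 156 and 138 with fludarabine, 70.7, 61.7 and 64.8 with ibrutinib and 58, 65 and 59.4 with idelalisib, less with both inhibitors than with DMSO. For ITPR3 in MEC1 the log2 fold changes were −1.39 ± 0.079, adjusted p = 2.38e-07 with ibrutinib and −1.497 ± 0.079, adjusted p = 8.75e-08 with idelalisib. In EHEB it was 54.2, 58.3 and 63.4 CPM with DMSO, 46.4, 40.8 and 46.2 with fludarabine, 72.2, 69.3 and 70.1 with ibrutinib and 82, 95.8 and 98 with idelalisib, higher with both. For ITPR3 in EHEB the log2 fold changes were 0.27 ± 0.084, adjusted p = 0.0475 with ibrutinib and 0.65 ± 0.085, adjusted p = 0.000146 with idelalisib. The lines differed (interaction adjusted p = 2.17e-12 and 5.19e-15). NFATC2 fell with ibrutinib in all 3 lines. It went from 71.5, 71.3 and 63.3 CPM with DMSO to 32.5, 34.7 and 34.4 with ibrutinib in MEC1. The JVM2 values of NFATC2 went from 9.08, 9.19 and 9.67 CPM with DMSO to 6.01, 7.03 and 6.95 with ibrutinib and the EHEB values from 102, 95.8 and 91 CPM with DMSO to 72.6, 67.5 and 71.7 with ibrutinib. For NFATC2 with ibrutinib the log2 fold changes were −1.02 ± 0.078, adjusted p = 1.64e-06 for MEC1, −0.48 ± 0.12, adjusted p = 0.0141 for JVM2 and −0.45 ± 0.056, adjusted p = 0.000258 for EHEB. STIM1, the sensor of the calcium store, was lower with fludarabine in all 3 lines (−0.71 ± 0.19, adjusted p = 0.0105 for MEC1, −0.90 ± 0.086, adjusted p = 7.53e-06 for JVM2 and −0.68 ± 0.097, adjusted p = 0.000215 for EHEB), and the channel ORAI1 was lower with fludarabine in EHEB (−0.40 ± 0.097, adjusted p = 0.00673). ITPR3 with ibrutinib in EHEB was not called without a filter on low counts (adjusted p from 0.0122 to 0.0964 over the alternatives), or without DMSO-133 or DMSO-134 or fludarabine-142 or fludarabine-144 or ibrutinib-280 or ibrutinib-281 or ibrutinib-282 or idelalisib-287 or idelalisib-288 (adjusted p from 0.0505 to 0.153). NFATC2 with ibrutinib in JVM2 was not called without DMSO-87 or ibrutinib-232 (adjusted p from 0.0506 to 0.0562). STIM1 with fludarabine in MEC1 was not called with library size scaling (adjusted p from 0.000162 to 0.0666 over the alternatives). ORAI1 with fludarabine in MEC1 was called in the fit of 6 libraries or in the joint fit of 36 libraries or with library size scaling (adjusted p from 0.0031 to 0.211 over the alternatives), or without idelalisib-192 (adjusted p = 0.00428), with a log2 fold change of 0.41 to 0.66. ORAI1 with fludarabine in JVM2 was called with library size scaling (adjusted p from 0.0182 to 0.897 over the alternatives), with a log2 fold change of 0.25. ORAI1 with idelalisib in MEC1 was called in the joint fit of 36 libraries (adjusted p from 0.00617 to 0.197 over the alternatives), or without idelalisib-191 (adjusted p = 0.04), with a log2 fold change of −0.64 to −0.52.

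CBL and CBLB mark activated receptors and kinases with ubiquitin. In MEC1, CBL measured 337, 366 and 327 CPM with DMSO, 366, 416 and 356 with fludarabine, 128, 122 and 129 with ibrutinib and 94.3, 118 and 112 with idelalisib, and it was lower with both inhibitors. For CBL in MEC1 the log2 fold changes were −1.44 ± 0.091, adjusted p = 4.57e-07 with ibrutinib and −1.67 ± 0.091, adjusted p = 1.07e-07 with idelalisib. In JVM2 and EHEB, however, libraries of the same group stood apart by as much or more. CBL was 216, 61.3 and 222 CPM with DMSO, 55.5, 193 and 53.3 with fludarabine, 189, 175 and 196 with ibrutinib and 165, 176 and 50 with idelalisib in JVM2. It was 105, 382 and 359 CPM with DMSO, 277, 268 and 85.6 with fludarabine, 301, 275 and 298 with ibrutinib and 320.4, 306 and 314 with idelalisib in EHEB. The libraries standing apart were in 3 of the 4 JVM2 groups and in the DMSO and fludarabine groups of EHEB, and CBL was called in none of the 6 drug comparisons of these lines. CBL overlaps MCAM on the other strand, and reads of the pair cannot be told apart without strand. CBLB was lower with fludarabine in all 3 lines (−0.64 ± 0.071, adjusted p = 2.71e-05 for MEC1, −0.28 ± 0.048, adjusted p = 0.000647 for JVM2 and −0.75 ± 0.049, adjusted p = 5.54e-07 for EHEB) and higher with idelalisib in JVM2 and EHEB. For CBLB with idelalisib the log2 fold changes were 0.40 ± 0.048, adjusted p = 5.6e-05 for JVM2 and 0.33 ± 0.048, adjusted p = 0.000324 for EHEB. CBLB with fludarabine in JVM2 was not called with library size scaling (adjusted p from 2.25e-06 to 0.199 over the alternatives).

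Idelalisib and ibrutinib were compared directly within each line, at 10 µM against 5 µM, so that drug and dose cannot be told apart. Between them, in MEC1 4 members were higher and 7 lower with idelalisib (all genes: 6.01% and 9.37%), 8 and 11 in JVM2 (all genes: 8.21% and 10.5%) and 10 and 8 in EHEB (all genes: 6.77% and 9.09%). In MEC1 the split with library size scaling, which moved the median of all genes by −0.17, was 1 higher and 22 lower. Of all genes called with that scaling 11.3% were higher, against 4.35% of the called members. The count of 11 called members ran from 4 to 12 with 1 library left out. It was 4 without ibrutinib-184, ibrutinib-186 or idelalisib-190, and 6 without idelalisib-192.

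CSK, VAV1, PIK3AP1 and PRKCB were lower with idelalisib than with ibrutinib in all 3 lines. The share of all genes lower in all 3 lines was not counted, so the pattern does not set these members apart. PRKCB measured 134.6, 119 and 126 CPM with ibrutinib and 84.3, 96 and 92 with idelalisib in MEC1. Its levels were 692, 668 and 629.6 CPM with ibrutinib and 539, 546 and 548 with idelalisib in JVM2 and 313, 300.1 and 325 CPM with ibrutinib and 207, 194 and 184.5 with idelalisib in EHEB. For PRKCB, idelalisib against ibrutinib, the log2 fold changes were −0.48 ± 0.068, adjusted p = 0.00157 for MEC1, −0.29 ± 0.04, adjusted p = 0.000663 for JVM2 and −0.68 ± 0.067, adjusted p = 6.75e-05 for EHEB. PIK3AP1 measured 526, 468 and 522 CPM with ibrutinib and 375, 403 and 404 with idelalisib in MEC1. It stood at 279, 260.3 and 265 CPM with ibrutinib and 205, 199 and 193 with idelalisib in JVM2 and 37.6, 40.6 and 40.5 CPM with ibrutinib and 29.2, 32.4 and 27.4 with idelalisib in EHEB. For PIK3AP1, idelalisib against ibrutinib, the log2 fold changes were −0.36 ± 0.064, adjusted p = 0.00435 for MEC1, −0.43 ± 0.041, adjusted p = 4.44e-05 for JVM2 and −0.42 ± 0.084, adjusted p = 0.00625 for EHEB. For both genes no idelalisib library reached the lowest ibrutinib library. For VAV1 the differences were −0.30 ± 0.084, adjusted p = 0.0322 for MEC1, −0.38 ± 0.052, adjusted p = 0.000644 for JVM2 and −0.41 ± 0.062, adjusted p = 0.00123 for EHEB. For CSK they were −0.41 ± 0.071, adjusted p = 0.00386, −0.24 ± 0.055, adjusted p = 0.0123 and −0.24 ± 0.063, adjusted p = 0.0237, in the same order. VAV1 with idelalisib against ibrutinib in MEC1 was not called in the fit of 6 libraries or without a filter on low counts (adjusted p from 0.00155 to 0.124 over the alternatives), or without ibrutinib-184 or ibrutinib-186 or idelalisib-190 or idelalisib-192 (adjusted p from 0.0913 to 0.115). CSK with idelalisib against ibrutinib in EHEB was not called in the fit of 6 libraries (adjusted p from 0.00745 to 0.0567 over the alternatives), or without ibrutinib-282 or idelalisib-286 or idelalisib-288 (adjusted p from 0.0755 to 0.0875).

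BTK was lower with idelalisib than with ibrutinib in JVM2 and EHEB (−0.34 ± 0.066, adjusted p = 0.00448 for JVM2 and −0.41 ± 0.088, adjusted p = 0.00866 for EHEB) and overlapped in MEC1 (−0.04 ± 0.15, adjusted p = 0.906). In the same comparison BLK and RASGRP3 were higher with idelalisib in JVM2 (0.58 ± 0.048, adjusted p = 1.59e-05 and 0.61 ± 0.042, adjusted p = 4.31e-06) and EHEB (0.62 ± 0.068, adjusted p = 0.000121 and 0.47 ± 0.039, adjusted p = 2.16e-05), and neither was called in MEC1 (−0.19 ± 0.063, adjusted p = 0.0635 and 0.03 ± 0.055, adjusted p = 0.799). FCRL5 was higher with idelalisib in MEC1 (1.52 ± 0.22, adjusted p = 0.00177) and lower in EHEB (−1.45 ± 0.31, adjusted p = 0.00849). FCRL3 was higher with idelalisib in EHEB (0.87 ± 0.19, adjusted p = 0.00878), and NFATC2 in JVM2 (0.64 ± 0.12, adjusted p = 0.00524). No member was higher with idelalisib than with ibrutinib in all 3 lines. BLK with idelalisib against ibrutinib in MEC1 was called with DESeq2 or in the joint fit of 36 libraries or with library size scaling (adjusted p from 0.00733 to 0.218 over the alternatives), or without ibrutinib-185 or idelalisib-191 (adjusted p from 0.0194 to 0.0397), with a log2 fold change of −0.36 to −0.19. FCRL5 with idelalisib against ibrutinib in EHEB was not called in the fit of 6 libraries (adjusted p from 5.15e-05 to 0.0558 over the alternatives). FCRL3 with idelalisib against ibrutinib in EHEB was not called in the joint fit of 36 libraries (adjusted p from 0.000138 to 0.187 over the alternatives).

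**Figure D5:**
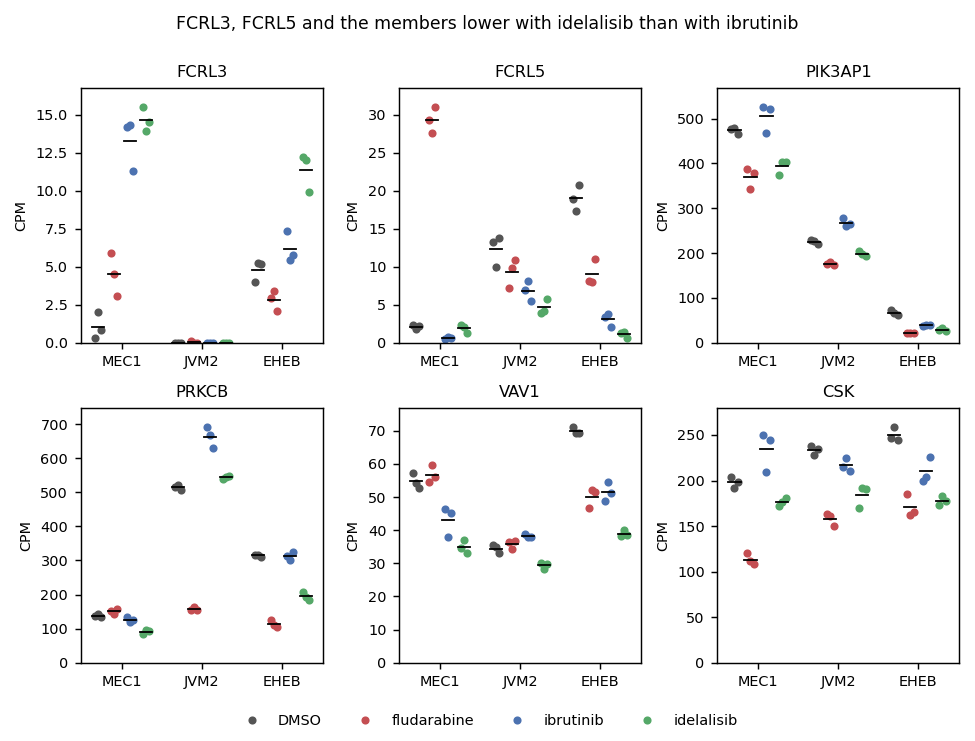
CPM of FCRL3, FCRL5, PIK3AP1, PRKCB, VAV1 and CSK in each of the 36 libraries on linear axes from 0, by line and coloured by treatment; each point is 1 library and the bar is the mean of 3. FCRL5 stands at 27.6 to 31 CPM with fludarabine in MEC1 against 1.81 to 2.29 with DMSO and is lower with each drug than with DMSO in EHEB, and the PIK3AP1 and PRKCB points lie lower with idelalisib than with ibrutinib in each line.

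A further 55 genes of the pathway that are not members, such as PI3-kinase and AKT subunits, RAS and MAP kinases, calcineurin and the IKK complex, were counted in the same way. With fludarabine, 23 of 55 were lower and 10 higher in MEC1 (all genes: 22.7% and 21.2%). There were 22 lower and 8 higher of 54 in JVM2 (all genes: 23.3% and 23.9%). In EHEB 27 were lower and 7 higher of 54 (all genes: 19.2% and 18.4%). Library size scaling turned the MEC1 and JVM2 splits, with 7 lower and 18 higher for MEC1 and 16 lower and 17 higher for JVM2. For EHEB it gave 22 lower and 8 higher. Of all genes called with this scaling, 74.1% were higher in MEC1, 69.1% in JVM2 and 61.8% in EHEB. With ibrutinib, 28 were lower and 8 higher in MEC1 (all genes: 23.9% and 23.7%) and 12 and 7 in JVM2 (15% and 14.5%). EHEB had 15 and 3 (11.2% and 8.5%). Scaled by library size, the lower and higher counts were in the same order of lines 24 and 12, 9 and 9, and 15 and 5. Of all genes called, 56.8%, 62.2% and 65.4% were then higher. With idelalisib, 36 were lower and 9 higher in MEC1 (all genes: 27.4% and 27.6%) and 13 and 17 in JVM2 (22.6% and 21.6%). EHEB had 17 and 10 (18.2% and 15.1%). Scaled by library size, the lower and higher counts were in the same order of lines 36 and 7, 11 and 20, and 15 and 12. Of all genes called, 43.6%, 59.5% and 59.6% were then higher. PIK3CD, the target of idelalisib, was higher with idelalisib in EHEB (0.96 ± 0.062, adjusted p = 8.4e-07) and JVM2 (0.25 ± 0.061, adjusted p = 0.00574) and not called in MEC1 (0.00 ± 0.11, adjusted p = 0.992).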

How the data were processed

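Total RNA of cultured cells was sequenced by the authors in 36 libraries. Per the labels and methods, the authors trimmed reads with Trimmomatic, aligned them to GRCh38 with HISAT2 2.1 and obtained the deposited values with StringTie 1.3.4 as estimated counts per gene symbol, neither normalised nor pooled, and they compared groups with edgeR 3.22.5. No source used here gives the Ensembl release or the use of strand. The deposited estimated counts are whole numbers whose low values heap at multiples of 8/3, so a count is not exactly 1 read. The entry without a gene name held 0.00384% of all counts and was left out. Every column matched a sample by its name.

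Each line's 12 libraries were fitted with edgeR 4.0.16 (glmQLFit and glmQLFTest, TMM scaling, filterByExpr with a minimum count of 10 and a minimum total of 15, R 4.3.3), and the 9 DMSO libraries in a fit of their own. Adjusted p-values are Benjamini-Hochberg values over all genes tested. The 36 libraries were fitted jointly for the interaction of line and treatment. Lengths are those of the Ensembl canonical transcripts of GENCODE 44. Promoter sequences are from RefSeq. The fit was tested on simulated data beforehand. Alternatives were library size scaling, DESeq2 1.42.0, no filter, a filter of mean CPM 5, fits of 6 libraries, the joint fit, counts divided by 8/3 and each library left out.

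The members, their roles and the list of 55 other pathway genes were chosen with earlier results of these data known. Values by library were to be given for BTK, CD79A, CD79B, SYK, LYN, BLNK and PLCG2, for the 3 called members with the largest log2 fold change in each comparison (mean of at least 1 CPM in 1 group, no overlap), for members called in the same direction with both inhibitors in all 3 lines, and for members called in opposite directions by a drug in 2 lines. Some genes of the marker and pathway lists are not reported here by name. The remaining genes named, and the levels of further members, were chosen after their values were seen. No library pair differed by less than its sampling noise.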

Additional observations from a re-analysis of the deposited data

Results flagged for a closer look

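The difference in a drug's effect between MEC1, JVM2 and EHEB was tested for each member by the interaction term of edgeR's quasi-likelihood F-test in the joint fit of 36 libraries, with Benjamini-Hochberg adjustment over all genes. The 3 lists that follow give the adjusted p of each difference past the threshold, from the smallest. FCRL3 is in all 3 lists, though JVM2 gave its test almost no counts. With fludarabine 34 of 46 members passed, with 8.04e-16 for PRKCB, 2.09e-12 for RASGRP3, 4.13e-12 for PIK3AP1, 6.71e-12 for FCRL5, 6.96e-12 for CD79A, 9.37e-12 for LYN, 1.51e-11 for PTPRC, 3.17e-11 for BLK, 9.29e-09 for ITPR1, 1.45e-08 for INPP5D, 1.4e-06 for FCGR2B, 4.44e-06 for CD72, 7.25e-06 for CR2, 1.39e-05 for CD22, 2.66e-05 for CBLB, 3.22e-05 for VAV1, 4.11e-05 for SYK, 4.11e-05 for NFATC1, 0.000374 for PLCG2, 0.00106 for LAT2, 0.00121 for FCRL3, 0.00138 for DAPP1, 0.00335 for FYN, 0.00408 for VAV2, 0.00421 for PRKCD, 0.0047 for BTK, 0.00759 for ORAI1, 0.0104 for MALT1, 0.0108 for SH3BP2, 0.0142 for ITPR3, 0.016 for BLNK, 0.0269 for PLCG1, 0.0314 for PTPN6 and 0.0417 for FGR. With ibrutinib 31 of 46 members passed, with 2.17e-12 for ITPR3, 3.93e-10 for CD79B, 3.44e-09 for PIK3AP1, 6.04e-09 for CD79A, 2.25e-08 for PLCG2, 6.06e-08 for PTPRC, 1.02e-07 for PLCG1, 1.86e-07 for PTPN22, 4.07e-07 for BLK, 4.95e-07 for INPPL1, 5.65e-07 for SYK, 1.51e-06 for INPP5D, 2.86e-06 for FYN, 3.35e-06 for RASGRP3, 3.94e-06 for TEC, 6.3e-06 for FGR, 2.51e-05 for VAV1, 3.02e-05 for CR2, 4.02e-05 for PRKCB, 8.99e-05 for ITPR1, 0.000196 for NFATC2, 0.000537 for PTPN6, 0.000553 for FCRL5, 0.000785 for FCRL3, 0.00175 for CSK, 0.00604 for MALT1, 0.016 for FCGR2B, 0.0218 for VAV2, 0.0231 for GRB2, 0.0261 for PRKCD and 0.0409 for CD22. With idelalisib 35 of 46 members passed, with 5.19e-15 for ITPR3, 5.98e-13 for PTPN22, 2.34e-12 for CD79B, 3.8e-10 for PLCG1, 1.2e-09 for NFATC2, 1.37e-09 for PIK3AP1, 3.13e-09 for INPPL1, 4.45e-09 for FCRL5, 9.28e-09 for PLCG2, 1.21e-08 for PRKCB, 2.7e-08 for RASGRP3, 8.98e-08 for CD79A, 1.31e-07 for CBLB, 1.35e-07 for BLK, 1.45e-07 for CR2, 2.28e-07 for SYK, 2.44e-07 for INPP5D, 3.12e-06 for PTPRC, 3.16e-06 for SH3BP2, 7.58e-06 for VAV2, 1.84e-05 for VAV1, 2.07e-05 for TEC, 2.35e-05 for FCGR2B, 5.47e-05 for MALT1, 0.000211 for FYN, 0.00045 for PRKCD, 0.0012 for GRB2, 0.0027 for LYN, 0.00286 for PTPN6, 0.00596 for FCRL3, 0.0169 for CD81, 0.0312 for LAT2, 0.0391 for RASGRP1, 0.041 for ITPR1 and 0.0429 for STIM1. With library size scaling the adjusted p no longer passed for FGR with fludarabine (0.146), BLNK with fludarabine (0.0509), PLCG1 with fludarabine (0.169), PTPN6 with fludarabine (0.115), LAT2 with idelalisib (0.114) and ITPR1 with idelalisib (0.0919). In the fit of the 18 libraries of DMSO and the drug it no longer passed for FGR with fludarabine (0.0718), PLCG1 with fludarabine (0.0594), CD22 with ibrutinib (0.0526), VAV2 with ibrutinib (0.0751), GRB2 with ibrutinib (0.125), PRKCD with ibrutinib (0.0914) and ITPR1 with idelalisib (0.0892). CR2, CD72, FCRL3, FCRL5 and INPP5D were called in opposite directions in 2 lines with fludarabine, SYK, FYN, CSK, PIK3AP1, PTPN22 and ITPR3 with ibrutinib, and SYK, FYN, VAV2, SH3BP2, INPP5D, PTPN22 and ITPR3 with idelalisib. Since 37.1%, 32.4% and 42.7% of all genes differed between the lines with the 3 drugs in this order, and exposure time differed with the line, these differences cannot be assigned to the line itself.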

How the results depend on the processing

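Of the 415 pairs of a tested member and a comparison that were called, 405 were tested under all 7 alternatives and 317 of them were called in each and with every library left out. The 10 others fell below the stricter filter, and 8 of these were called wherever tested. Calls were lost by 80 pairs under at least 1 alternative and by 62 with at least 1 library left out. Calls were lost for 44 pairs with library size scaling, 25 in fits of the 6 libraries compared, 25 in the joint fit of 36 libraries, 23 without a filter on low counts, 12 with a mean CPM of 5 as the filter, 1 with counts divided by 8/3 (an alternative chosen after seeing the data) and 0 with DESeq2, of which the library size scaling has the shifts in the median of all genes as part of its construction. Library size scaling reversed the direction of INPPL1 with fludarabine, to 0.0732 in MEC1 and 0.0016 in JVM2 on the log2 scale. The number of members called with idelalisib against ibrutinib in MEC1, 11, became 23 with library size scaling and 6 in the fit of 6 libraries, and with 1 library left out it ran from 4 to 12, the cause of which was not tested. The other 14 counts of members called stayed within 1.5 times their value under each alternative and with each library left out. No paired analysis was possible because the groups of a line share no library numbers. Members under about 10 counts a library (FCRL1, FCRL2 and BMX everywhere, FCRL3 in JVM2) were out of reach of a test at this depth.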
